A study of Mus musculus with 46 samples.

Results

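Tumors of mice that carry Wnt1 under the mouse mammary tumor virus (MMTV) promoter were compared with normal mammary glands of pregnant mice of the same strain. The 4 arrays titled MMTV-Wnt and the 5 arrays titled FVB pregnant made up the comparison, which is 9 of the 46 mRNA arrays of the series. Each MMTV-Wnt array held 1 primary mammary tumor of a female FVB mouse, and each FVB pregnant array held normal mammary tissue of a pregnant female FVB mouse without a tumor transgene. A further 25 tumors of 5 other models on FVB served only to show where MMTV-Wnt tumors differed from tumors in general. They were C3TAg (5 tumors, SV40 T antigens under the C3(1) promoter) and 4 models under the MMTV promoter, namely MMTV-C-Myc (4), MMTV-H2N (5, Her2/neu), MMTV-Hras (5) and MMTV-PymT (6, polyoma middle T antigen).

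Several features limit the groups as models. The MMTV promoter responds to steroid hormones and is active in mammary epithelium, but also in salivary gland and some lymphoid cells. The glands came from mice late in pregnancy, whose secretory cells are already producing milk proteins. Being a tumor and any difference in pregnancy between the mice therefore cannot be told apart. Both tissues were whole pieces, in which fewer cells of a type and less RNA per cell cannot be told apart either. All groups compared were on FVB, and the age of the mice was not given in the sources used here. The fit also held 7 p53-/- tumors (Balb/C, from transplants) and 5 Brca1-/-p53+/- tumors (129B6/FVB), which entered only its estimate of spread and an alternative with all 7 other models.

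Wnt1 is a secreted ligand that binds Frizzled receptors with the coreceptors Lrp5 and Lrp6. Binding stops the destruction complex of Axin, Apc, casein kinase and Gsk3b from marking beta-catenin for decay, and beta-catenin then enters the nucleus and switches on targets together with TCF/LEF factors. Many of these targets, among them Axin2, Nkd1, Notum and Wif1, dampen the same pathway. In the mammary gland Wnt signals act on basal and progenitor cells, and MMTV-Wnt1 tumors are known for holding both luminal and basal cells.

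Levels are log2 GC-RMA values, so a difference of 1 is a 2-fold change, and values near 2 lie at the floor of the method. A gene is called here at an adjusted p under 0.05 from limma. Of 9329 genes tested, 1354 were called higher in MMTV-Wnt tumors than in normal gland (14.5%) and 1237 lower (13.3%). With a difference of at least 2-fold as well, 1135 were higher and 1094 lower. Every tumor lay above every gland for 1120 genes (12%), and every tumor lay below every gland for 849 (9.10%). Against the other FVB tumors 334 genes were called higher (3.58%) and 503 lower (5.39%), or 298 and 395 at 2-fold or more. The shares called over all genes are the background for every list count below, also where they are not repeated. The 395 became 216 without MMTV-Wnt 1. The split between higher and lower turned with the scaling, since centring each array on its median gave 392 higher and 308 lower genes. The same centring gave 1024 higher and 1236 lower genes against normal gland. It moved the median difference of all genes from 0.10 to -0.01 against gland and from -0.09 to 0.04 against the other tumors. A fit of the 9 arrays alone took the spread from fewer samples and only from these tumors and glands. It gave 910 higher and 771 lower genes at 2-fold or more. In it 41 of the 165 named genes called against gland were not called.

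The 4 tumors were not alike, and MMTV-Wnt 3 stood apart from the other three. Across genes, which are not independent replicates, MMTV-Wnt 1, 2 and 4 correlated at 0.867 to 0.922 with each other, whereas MMTV-Wnt 3 correlated at 0.776 to 0.828 with them and the glands at 0.908 to 0.959 among themselves. At a gap of at least 4 on the log2 scale, 110 genes lay above all other MMTV-Wnt tumors in MMTV-Wnt 3 and 137 lay below. The same counts were 21 and 23 in MMTV-Wnt 1, 44 and 12 in MMTV-Wnt 2, and 28 and 0 in MMTV-Wnt 4. Genes singled out by MMTV-Wnt 3 after its values were seen included the stress and matrix genes Ankrd1 (12.35) and Mmp13 (11.99), the AP-1 gene Fosl1 (9.87) and the growth factor receptor Met (12.62), all high there. Epithelial genes were low there, with Epcam at 3.60, Dsp (desmoplakin) at 2.57 and Esrp1, an epithelial splicing regulator, at 2.24. The mean of 24 epithelial junction genes was 4.85 in MMTV-Wnt 3 and 9.53 to 10.18 in the others, while the mean of 18 mesenchymal/EMT genes was 9.80 there and 6.66 to 7.27 in the others.

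The other tumors also differed from each other. MMTV-Wnt 1 was highest for the Wnt feedback gene Notum (11.21), the R-spondin receptor gene Lgr5 (9.07) and the stratified epithelial genes Krt6a (12.53) and Sprr1a (11.24). Krt6a and Sprr1a were also at 9.19 and 9.27 in MMTV-Wnt 4, and the mean of 10 keratinised genes was 6.55 and 6.01 in MMTV-Wnt 1 and 4 and 3.64 and 3.93 in MMTV-Wnt 2 and 3. MMTV-Wnt 2 was high for salivary genes, with Bpifa2 at 14.58 and a mean of 8.88 over 12 salivary genes against 3.36 to 3.58 in the other three. MMTV-Wnt 4 was high for skeletal muscle genes, with Acta1 at 11.25 and a mean of 7.32 over 18 muscle genes against 2.60 to 3.20 in the other three, and it kept the milk fat globule gene Btn1a1 at 10.27. The source of the salivary, mesenchymal and muscle gene levels in MMTV-Wnt 2, 3 and 4 was not tested. Nor was the part of these genes in the other results. Leaving out MMTV-Wnt 3 gave 1327 higher and 1097 lower calls against normal gland at the adjusted p alone, of which 1122 and 1006 were shared with the calls on all tumors. Against other FVB tumors it gave 279 and 312 calls, of which 212 and 258 were shared.

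**Figure D1:**
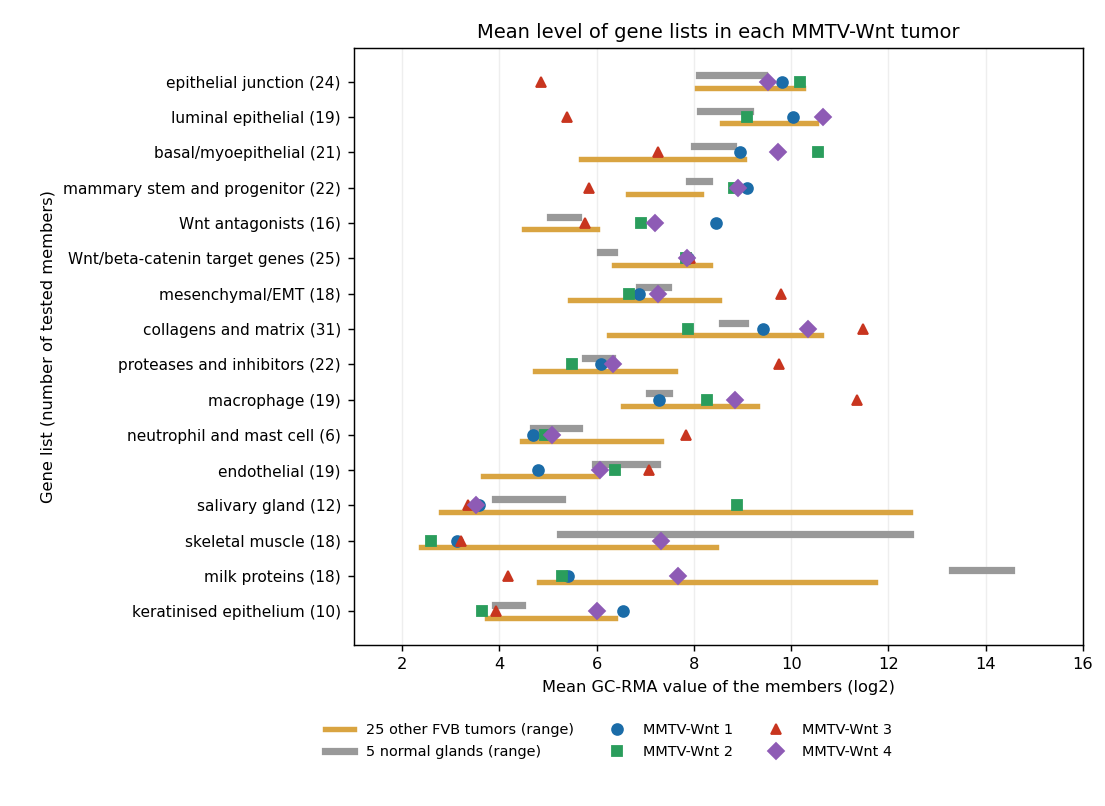
Mean log2 GC-RMA value (x axis) of the tested members of 16 gene lists (y axis, number of members in brackets) in each MMTV-Wnt tumor (symbols), with the range over 5 normal glands (grey bars) and over 25 other FVB tumors (orange bars). MMTV-Wnt 3 stands apart for junction (4.85), mesenchymal (9.80) and macrophage (11.35) genes, MMTV-Wnt 2 for salivary genes (8.88) and MMTV-Wnt 4 for muscle genes (7.32).

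Among antagonists of Wnt signalling, 7 of the 16 tested were called higher than in normal gland and 0 lower, with a median difference of 1.37 beside 0.10 over all genes. Against other FVB tumors 7 were also higher and 0 lower, with a median of 2.13 beside -0.09. Nkd2, which binds Dishevelled and dampens the pathway, reached 12.80, 7.98, 4.28 and 9.55 in MMTV-Wnt 1 to 4 and lay at 2.77, 2.82, 2.20, 2.29 and 2.87 in the glands. All 4 tumors were above all 5 glands, by 6.06 on average (SE 1.59, adjusted p = 0.00374), although MMTV-Wnt 3 was far below the other tumors. The 25 other FVB tumors ranged from 2.79 through a median of 4.50 to 11.17, so they overlapped the MMTV-Wnt tumors (adjusted p = 0.154).

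Axin2, a scaffold of the destruction complex and a direct beta-catenin target, was at 9.56, 7.59, 6.40 and 5.82 in the tumors and at 2.42, 5.59, 6.14, 2.31 and 3.64 in the glands. The lowest tumor lay just under the highest gland. The mean difference was 3.33 (SE 0.76, adjusted p = 0.00102). It was further from the other FVB tumors, of which the highest reached 4.99 and the median 2.20, so all 4 MMTV-Wnt tumors were above all 25 (difference 4.98, SE 0.61, adjusted p = 1.66e-06). Axin2 missed the threshold against gland in the fit of the 9 arrays alone (adjusted p = 0.0503), and with values under 4 raised to 4 its difference from other tumors was 3.29.

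Sostdc1 and Wif1, which encode secreted inhibitors that bind Wnt coreceptors or Wnt proteins, showed how far MMTV-Wnt 3 departed. Sostdc1 was at 12.10, 10.47, 2.20 and 10.08 in the tumors and at 4.93, 4.36, 2.32, 3.78 and 6.05 in the glands. The other tumors thus exceeded every gland, while MMTV-Wnt 3 lay at the floor, as did FVB pregnant 3. The difference of 4.43 (adjusted p = 0.00647) became 6.60 without MMTV-Wnt 3 (adjusted p = 1.33e-05). Wif1 stood at 11.25, 12.96, 2.85 and 12.64 against 4.64, 5.94, 4.88, 7.89 and 8.04 in the glands. It was not called on all 4 tumors (difference 3.65, adjusted p = 0.104) and was called without MMTV-Wnt 3 (6.01, adjusted p = 0.00473). Both genes were called higher than in other FVB tumors, by 6.13 (adjusted p = 9.40e-05) and 5.79 (adjusted p = 0.00459). Sostdc1 was not called against gland in the fit of the 9 arrays (adjusted p = 0.118).

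The remaining antagonists followed their own patterns. Dkk3, a member of the Dickkopf family, was higher in all 4 tumors (3.87, 6.99, 7.78 and 7.83) than in all glands (2.61 to 3.04), by 3.76 (adjusted p = 0.00127). Notum, an enzyme that removes the lipid from Wnt proteins, was at 11.21 in MMTV-Wnt 1 and at 2.01, 4.13 and 3.79 in the others, with glands at 2.02 to 2.74, and its difference of 3.01 (adjusted p = 0.00567) became 1.03 without MMTV-Wnt 1. Nkd1, a relative of Nkd2 (difference 1.5, adjusted p = 0.0434), and Tle3, a corepressor of TCF factors (1.24, adjusted p = 0.0142), completed the 7. Apcdd1, a membrane inhibitor, was not called against gland (1.17), although another of its probe sets was (1.75, adjusted p = 0.0271). It was called against other tumors, with 8.35 to 11.90 in MMTV-Wnt tumors and a median of 5.21 in the others (difference 4.01, adjusted p = 0.000355). Secreted Frizzled-related genes were not called, with differences of -1.16 for Sfrp1 (adjusted p = 0.438) and 1.61 for Sfrp2 (adjusted p = 0.355). The count of 7 against normal gland was 4 without MMTV-Wnt 1. Lost calls were those of Sostdc1 without MMTV-Wnt 1 (adjusted p = 0.0561), Nkd1 without MMTV-Wnt 1 or 2 or FVB pregnant 1, 2, 4 or 5 (adjusted p = 0.0777 to 0.225), Notum without MMTV-Wnt 1 (adjusted p = 0.0839) and Tle3 without MMTV-Wnt 4 (adjusted p = 0.0539). Against other tumors Nkd1 (1.89, adjusted p = 0.00577) lost its call without MMTV-Wnt 1 (adjusted p = 0.0944). Nkd1, Notum and Tle3 were not called against gland in the fit of the 9 arrays (adjusted p = 0.182, 0.208 and 0.0671). Nkd1 was not called with values under 4 raised to 4 either, against gland (0.71, adjusted p = 0.0858) or other tumors (0.75, adjusted p = 0.0504), nor against gland after centring (adjusted p = 0.0621). Notum was called at 1.84 against both with that floor, and at 1.85 against gland and 2.05 against other tumors with array weights. Its difference from other tumors was 3.25, or 1.27 without MMTV-Wnt 1. Tle3 rested on its probe set, since the other probe sets gave 0.13 and -0.25 and the mean of all gave 0.37 (adjusted p = 0.556).

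Of 16 tested genes for Wnt secretion and reception, 7 were higher than in normal gland and 2 lower (median difference 1.40), and 5 were higher and 2 lower than in other FVB tumors. Fzd2, a Frizzled receptor, was at 9.02, 7.00, 11.02 and 7.16 in the tumors and between 3.79 and 4.36 in the glands (difference 4.53, SE 0.68, adjusted p = 3.22e-06). No tumor overlapped a gland for this gene. Fzd1 (2.56, adjusted p = 0.000425), Fzd7 (1.78, adjusted p = 0.0126) and the kinase-like receptor Ryk (1.22, adjusted p = 0.0129) were also higher. Lgr6, an R-spondin receptor found on progenitor cells of skin, was at 10.52, 6.50, 4.94 and 7.82 against 4.05 to 4.40 in the glands (3.23, adjusted p = 0.0137). Porcn, the acyltransferase that lets Wnt proteins leave the cell, rose by 2.96 (adjusted p = 0.00434), and the receptor tyrosine kinase Ror2 rose by 2.66 (adjusted p = 0.0350). Fzd4, in contrast, was at 4.80, 6.85, 6.83 and 6.84 in the tumors and at 9.27 to 10.66 in the glands, a fall in all 4 tumors (-3.71, adjusted p = 0.00143). The coreceptor Lrp5 was also lower (-2.42, adjusted p = 0.0384). The 7 higher calls became 4 without MMTV-Wnt 1 and the 2 lower calls 1 without MMTV-Wnt 2, 3 or 4 or FVB pregnant 2, 3, 4 or 5. Calls against gland were not kept by Lgr6 without MMTV-Wnt 1 (adjusted p = 0.114), Ror2 without MMTV-Wnt 1 or 2 or FVB pregnant 2, 3, 4 or 5 (adjusted p = 0.0545 to 0.143), Fzd7 without MMTV-Wnt 1 or 2 (adjusted p = 0.0539 and 0.0546) and Lrp5 without MMTV-Wnt 2, 3 or 4 or FVB pregnant 2, 3, 4 or 5 (adjusted p = 0.0525 to 0.0946). Fzd1 and Ror2 were not called in the fit of the 9 arrays (adjusted p = 0.0692 and 0.0626), and Lrp5 was not with values under 4 raised to 4 (-1.45, adjusted p = 0.137). Fzd1 was called at 1.56 without MMTV-Wnt 1 and at 1.4 with array weights.

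Of the same 16 genes 5 were higher than in the other FVB models, beside 3.58% of all genes, and 2 were lower, beside 5.39%. The median difference of 0.69 became 0.20 without MMTV-Wnt 1. Fzd1 (2.71, adjusted p = 8.75e-05), Porcn (3.00, adjusted p = 0.00170), Lgr6 (3.09, adjusted p = 0.0107), Fzd2 (2.04, adjusted p = 0.0120) and Ror2 (2.62, adjusted p = 0.0257) were the higher ones. The lower ones were Lrp5 (-2.19, adjusted p = 0.0464) and Lrp6 (-1.21, adjusted p = 0.0300). The 5 higher calls became 2 without MMTV-Wnt 1. They were lost for Fzd2 without MMTV-Wnt 1 or 3 (adjusted p = 0.0674 and 0.217), Lgr6 without MMTV-Wnt 1 (adjusted p = 0.165) and Ror2 without MMTV-Wnt 1 or 2 (adjusted p = 0.170 and 0.128). The lower calls were lost for Lrp5 without MMTV-Wnt 2, 3 or 4 (adjusted p = 0.101 to 0.164) and Lrp6 without MMTV-Wnt 3 or 4 (adjusted p = 0.252 and 0.105), and that of Lrp5 also without each of 14 tumors of other models (adjusted p = 0.0502 to 0.0596). Fzd1 was called at 1.71 without MMTV-Wnt 1 and at 1.56 with array weights, which ended the call of Fzd2 (1.13, adjusted p = 0.089). Lrp5, Lrp6 and Ror2 were not called against all 7 other models (adjusted p = 0.0925, 0.0878 and 0.0581). Lrp5 was also lost with values under 4 raised to 4 (-1.43), centring, no filter or the replicate block (adjusted p = 0.0512 to 0.119), and Lrp6 was at -2.02 as the mean of its probe sets.

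Few of the ligands were called, with 0 of 8 tested genes higher and 1 lower than in normal gland (median difference 1.20, or 0.01 without MMTV-Wnt 3), and the transgene's own gene was not analysed here. Rspo1, a ligand of Lgr receptors that strengthens Wnt signals, was at 10.64, 10.66, 10.58 and 11.59 in 4 glands and at 2.20 in FVB pregnant 4. It was at 2.14 to 2.17 in MMTV-Wnt 1 to 3 and at 7.37 in MMTV-Wnt 4 (difference -5.68, adjusted p = 9.44e-05). Wnt5a, a ligand of the noncanonical branch, was at 10.59, 7.85, 9.85 and 10.98 in the tumors and at 5.64 to 8.38 in the glands (2.30, adjusted p = 0.0717). It was called against other FVB tumors, whose median was 5.93 (3.69, adjusted p = 0.00169), and was the 1 ligand of 8 higher there, with a list median of 1.05 that became 0 without MMTV-Wnt 3. Another Wnt5a probe set was called against gland (2.50, adjusted p = 0.0428). Wnt2, Wnt7b and Wnt10a, noted after their values were seen, were at 8.89, 9.86 and 8.20 in MMTV-Wnt 3 and at or under 3.72 in the other tumors, and none was called. The count of 0 higher ligands against gland became 1 without MMTV-Wnt 1 or 4 and 2 without MMTV-Wnt 2, and the 1 against other tumors became 2 without MMTV-Wnt 1, 2 or 4. Rspo1 was not called in the fit of the 9 arrays (adjusted p = 0.0768).

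Among 19 core components of the beta-catenin pathway 3 were higher and 3 lower than in normal gland (median difference 0.15). These counts were near the shares called over all genes, 14.5% higher and 13.3% lower. Ctnnb1, which encodes beta-catenin, was at 13.62, 13.69, 13.32 and 13.88 in the tumors and at 12.38, 12.74, 12.44, 12.74 and 12.97 in the glands. The groups did not overlap, and the difference of 0.97 (SE 0.19, adjusted p = 0.000156) was close to a 2-fold change. That size belonged to the probe set used, since the other probe sets gave 3.51 and 2.50 and the mean of all 2.33 (adjusted p = 1.08e-07). The other FVB tumors held the same range (median 13.50), and their difference from MMTV-Wnt tumors was 0.17 (SE 0.15, adjusted p = 0.549), but 0.84 as the mean of all probe sets (adjusted p = 0.0154). Pygo2, a nuclear cofactor of beta-catenin (1.18, adjusted p = 0.00841), and casein kinase gene Csnk1e (1.32, adjusted p = 0.0146) were higher than in gland. Gsk3b (-1.76, adjusted p = 0.0345), Dvl1, a Dishevelled gene (-0.97, adjusted p = 0.0334), and Fbxw11, an adaptor that hands beta-catenin to decay (-0.88, adjusted p = 0.0181), were lower. The 3 lower calls against gland became 0 without MMTV-Wnt 3 and 1 without MMTV-Wnt 4 or FVB pregnant 3. Lost here were the calls of Csnk1e without MMTV-Wnt 1 or 3 (adjusted p = 0.0577 and 0.100) and Gsk3b without MMTV-Wnt 3 or 4 or FVB pregnant 2, 3 or 4 (adjusted p = 0.0550 to 0.0968). Without MMTV-Wnt 3 Dvl1 and Fbxw11 were no longer called either (adjusted p = 0.172 and 0.141). The 2 components lower than in other FVB tumors were Gsk3b (-1.56, adjusted p = 0.0466) and the cofactor gene Bcl9l (-1.87, adjusted p = 0.0243). Neither call was firm, being lost for Gsk3b without MMTV-Wnt 1, 3 or 4 (adjusted p = 0.0761 to 0.181) and Bcl9l without MMTV-Wnt 3 or 4 (adjusted p = 0.113 and 0.0974), and for Gsk3b without each of 14 tumors of other models (adjusted p = 0.0501 to 0.0581). Csnk1e was not called in the fit of the 9 arrays (adjusted p = 0.0663) or with array weights (0.68, adjusted p = 0.138), and Gsk3b was not called against gland with the replicate block (adjusted p = 0.0626). Gsk3b was not called against other tumors with the block, centring, quantile normalization, no filter or the 29 FVB tumor arrays alone (adjusted p = 0.0507 to 0.112).

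Of 25 tested targets of beta-catenin, 10 were higher than in normal gland and 0 lower (median difference 1.58), beside 14.5% and 13.3% of all genes. All tumors lay above all glands for 8 of them, beside 12% of all genes. Cd44, a hyaluronan receptor on many progenitor cells, was at 10.91, 10.94, 12.01 and 10.67 in the tumors and at 6.38, 6.33, 6.33, 7.04 and 6.99 in the glands. The gap between the groups was wide (difference 4.52, SE 0.50, adjusted p = 1.35e-08). Cyclin D1 (Ccnd1), which drives cells out of G1, was at 11.89 to 12.55 in the tumors and 9.33 to 10.33 in the glands (2.39, adjusted p = 0.00779). Higher levels were also found for Fst, which encodes the activin antagonist follistatin (3.85, adjusted p = 0.0109), Ccn1, a matrix protein (3.19, adjusted p = 0.000190), the receptor gene Ephb3 (2.83, adjusted p = 0.00142), the Hippo effector Yap1 (1.76, adjusted p = 6.13e-06) and the progenitor factor Sox4 (1.33, adjusted p = 0.00276). Some targets again divided the tumors. Tnfrsf19, a receptor of the TNF family, was at 12.84, 11.98, 4.82 and 11.68 against 3.92 to 8.47 in the glands (3.81, adjusted p = 0.0259), and Bambi, a pseudoreceptor for TGF-beta, was at 9.70, 8.48, 5.20 and 9.11 (3.20, adjusted p = 0.00401). Ccn4, in contrast, was highest in MMTV-Wnt 3 (5.05, 3.12, 9.97 and 6.37), and its difference of 3.25 (adjusted p = 0.0162) became 1.97 without that tumor (adjusted p = 0.157). Tnfrsf19 lost its call without MMTV-Wnt 1, 2 or 4 or FVB pregnant 4 (adjusted p = 0.0817 to 0.119). Ccn4 and Tnfrsf19 were not called in the fit of the 9 arrays (adjusted p = 0.0809 and 0.13), and Ccn4 was not with values under 4 raised to 4 (adjusted p = 0.0571).

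Myc, also a beta-catenin target and a regulator of growth, was at 10.50, 10.38, 10.23 and 10.74 in the tumors and at 8.86, 8.92, 8.67, 9.07 and 9.92 in the glands. Every tumor lay above every gland, but the difference of 1.37 (SE 0.55) did not pass (adjusted p = 0.0580), and it did so without FVB pregnant 5 (adjusted p = 0.0383), with array weights (adjusted p = 0.0131) and in the fit of the 9 arrays (adjusted p = 0.0123). Against the other FVB tumors 3 of the 25 targets were higher, beside 3.58% of all genes, namely Fst (4.35, adjusted p = 0.00191), Snai2, an EMT factor also found in basal cells (3.67, adjusted p = 0.00179), and the gap junction gene Gja1 (1.74, adjusted p = 0.0248), and Id2, which blocks differentiation factors, was lower (-1.24, adjusted p = 0.0488). Lost again were Gja1 without MMTV-Wnt 1, 3 or 4 (adjusted p = 0.0521 to 0.104) and Id2 without MMTV-Wnt 1 or 3 (adjusted p = 0.256 and 0.344), and Id2 without each of 18 tumors of other models (adjusted p = 0.0510 to 0.0616). The 3 higher calls became 5 without MMTV-Wnt 2. The TCF/LEF consensus CTTTGAT, searched on both strands from 250 bases before to 50 bases after each RefSeq start, was in 3.73% of all promoter windows, in 1 of 17 windows of these targets (that of Tnfrsf19) and in 0 of 13 windows of the antagonists. Gja1 and Id2 were not called against all 7 other models (1.33 and -0.69, adjusted p = 0.112 and 0.346), and Id2 was lost with array weights (-0.57) and with centring, quantile normalization, no filter or the replicate block (adjusted p = 0.0512 to 0.346).

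**Figure D2:**
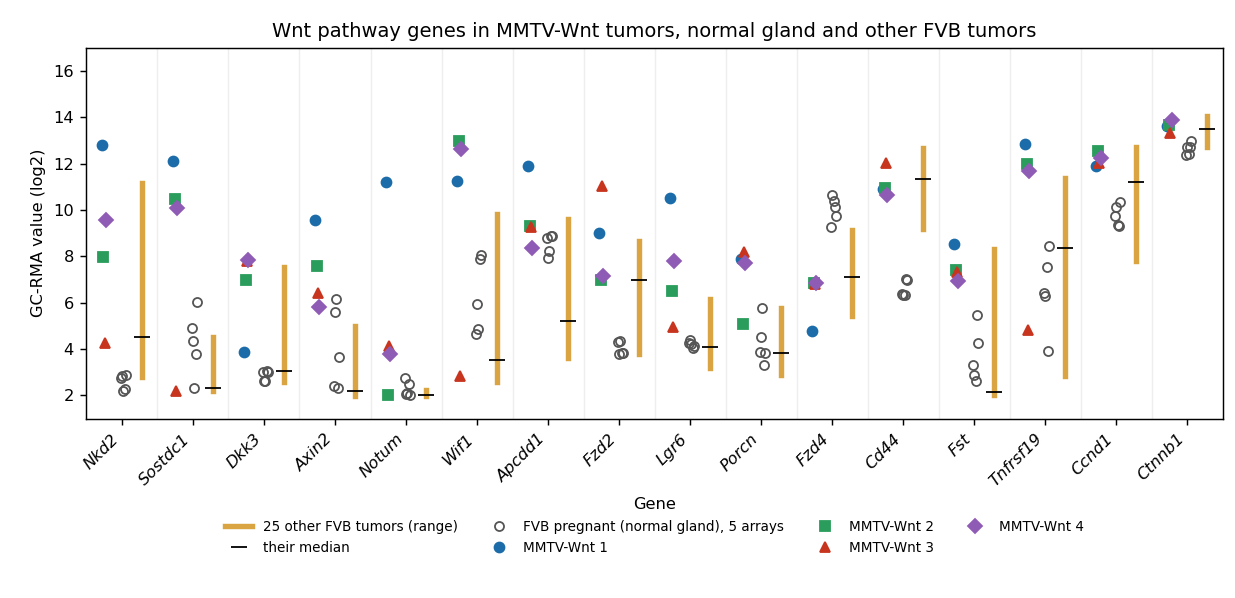
Log2 GC-RMA values (y axis) of 16 Wnt pathway genes (x axis) in the 4 MMTV-Wnt tumors (filled symbols), the 5 normal glands (open circles) and, as a bar with its median, the 25 other FVB tumors. Nkd2, Cd44 and Fzd2 lie above all glands in every MMTV-Wnt tumor, Axin2 lies above all 25 other tumors, and Fzd4 lies below all glands.

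Basal and luminal genes separated the comparison with normal gland from that with other tumors. Basal/myoepithelial cells form the outer, contractile layer of mammary ducts, and luminal cells line the lumen. Of 21 tested basal genes 5 were higher and 1 lower than in normal gland (median difference 1.02, or 0.51 without MMTV-Wnt 2), whereas 12 were higher and 0 lower than in the other FVB tumors (median difference 2.40 beside -0.09 over all genes). Krt5, a basal keratin, was at 13.28, 11.71, 2.99 and 11.98 in the tumors and at 9.16, 8.31, 8.43, 9.52 and 9.43 in the glands. MMTV-Wnt 1, 2 and 4 were above every gland and MMTV-Wnt 3 was below all of them, so no difference was called (1.02, SE 1.64, adjusted p = 0.692), and its sign turned without MMTV-Wnt 1 (-0.08). In the other FVB tumors Krt5 ran from 2.93 through 4.51 to 9.09, and the difference was 5.04 (SE 1.32, adjusted p = 0.0105). Krt14, its partner keratin, was at 13.92, 11.47, 9.70 and 11.31 in the tumors and at 8.87 to 10.55 in the glands (2.16, adjusted p = 0.260), and was 4.68 above the other FVB tumors (adjusted p = 0.00549).

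Contractile genes showed the same contrast. Acta2, smooth muscle actin, was at 10.93, 14.74, 11.94 and 14.31 in the tumors, at 12.87 to 14.18 in the glands and at 7.73 to 11.90 in the other FVB tumors. It was called against the other tumors (3.06, adjusted p = 0.00340) and not against the glands (-0.56, adjusted p = 0.682). Myh11, smooth muscle myosin, was at 2.51 and 2.42 in MMTV-Wnt 1 and 3 but at 11.52 and 8.98 in MMTV-Wnt 2 and 4, lower than in gland (-2.87, adjusted p = 0.0412) and higher than in other tumors (3.68, adjusted p = 0.00450). Tagln (4.43, adjusted p = 0.000387), Cnn1 (3.87, adjusted p = 0.00303), Cav1, a caveolar protein (3.53, adjusted p = 0.00249), the basal master factor Trp63 (4.17, adjusted p = 0.0444) and the Notch ligand Jag2 (2.57, adjusted p = 0.00647) were further basal genes higher than in the other FVB models. Those higher than in gland were Krt17 (3.80, adjusted p = 0.0483), Bcl11b, a stem cell factor (3.15, adjusted p = 0.0434), the integrins Itgb4 (3.01, adjusted p = 0.00732) and Itgb1 (1.24, adjusted p = 0.0354), and Jag2 (2.31, adjusted p = 0.0235).

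The 5 higher basal calls against gland became 0 without MMTV-Wnt 1, 1 without FVB pregnant 3, 2 without MMTV-Wnt 2 or FVB pregnant 1 or 4 and 3 without MMTV-Wnt 4 or FVB pregnant 2 or 5. Those lost were Krt17 without MMTV-Wnt 1, 2 or 4 or FVB pregnant 1, 2, 3, 4 or 5 (adjusted p = 0.0554 to 0.176) and Bcl11b without MMTV-Wnt 1, 2 or 4 or FVB pregnant 1, 2, 3, 4 or 5 (adjusted p = 0.0576 to 0.261). The integrins and Jag2 gave way as well, Itgb4 without MMTV-Wnt 1 (adjusted p = 0.0555), Itgb1 without MMTV-Wnt 1 or 3 or FVB pregnant 3 or 4 (adjusted p = 0.0538 to 0.203) and Jag2 without MMTV-Wnt 1 or 2 or FVB pregnant 1 or 3 (adjusted p = 0.0506 to 0.107). For Myh11 the lower call against gland was lost without MMTV-Wnt 1 or 3 or FVB pregnant 1, 2, 3 or 4 (adjusted p = 0.0542 to 0.301), and the 1 lower call of the list became 0 without MMTV-Wnt 1 or 3 or FVB pregnant 1, 2, 3 or 4, 2 without MMTV-Wnt 4 and 3 without MMTV-Wnt 2. Against other FVB tumors the 12 basal calls became 7 without MMTV-Wnt 4. There Krt5 without MMTV-Wnt 1 or 4 (adjusted p = 0.111 and 0.0672), Krt14 without MMTV-Wnt 1 (adjusted p = 0.0598), Jag2 without MMTV-Wnt 1 (adjusted p = 0.0690) and Myh11 without MMTV-Wnt 2 or 4 (adjusted p = 0.108 and 0.0622) lost their calls, and without MMTV-Wnt 3 the adjusted p of Krt5 was 0.000225. Krt17, Bcl11b, Itgb1, Jag2 and Myh11 were not called against gland in the fit of the 9 arrays (adjusted p = 0.0575 to 0.286). Krt17 and Bcl11b were also lost with values under 4 raised to 4 (2.78 and 1.8) or centring, and Krt17 with no filter or the replicate block (adjusted p = 0.0536 to 0.135 over these settings). Array weights gave 0.68 for Itgb1 (adjusted p = 0.163) and -0.71 for Myh11 (adjusted p = 0.504) against gland and 5.85 for Myh11 against other tumors. The mean of probe sets gave 0.77 for Itgb1, and Myh11 was at -4.59 without MMTV-Wnt 2.

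The luminal keratins Krt8 and Krt18 were present in every tumor, MMTV-Wnt 3 included. The mean of 19 luminal genes was nevertheless low in MMTV-Wnt 3, at 5.39. It was 9.09 to 10.65 in the other MMTV-Wnt tumors and 8.12 to 9.15 in the glands. Krt8 was at 11.63, 14.42, 12.93 and 13.45 in the tumors and at 11.54 to 12.98 in the glands (1.02, adjusted p = 0.0907). Krt18 was at 13.25, 14.54, 12.89 and 13.54 against 12.19, 11.48, 11.72, 12.43 and 12.39, with all tumors above all glands (1.51, SE 0.59, adjusted p = 0.0524). It passed without MMTV-Wnt 3 (adjusted p = 0.0437) and with a filter at log2 6, a trended and robust prior, the replicate block, array weights or the 9 arrays alone (adjusted p = 0.00668 to 0.0489). Krt8 passed without MMTV-Wnt 1 (adjusted p = 0.0137) or FVB pregnant 5 (0.0455) and with array weights (0.00372). Elf5, the factor that directs secretory alveolar cells, was at 8.79, 12.98, 2.32 and 12.84 in the tumors and at 12.66 to 13.68 in the glands, thus near gland level in MMTV-Wnt 2 and 4 only. Its difference of -3.98 was not called (adjusted p = 0.0954), and was called without MMTV-Wnt 2 (-5.23, adjusted p = 0.0404) or MMTV-Wnt 4 (-5.18, adjusted p = 0.0432). Another probe set of Elf5 was called lower (-6.45, adjusted p = 0.000668), as was the mean of its probe sets (-5.22, adjusted p = 0.00874).

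Of 19 tested luminal genes 3 were higher than in gland and 1 lower (median difference 0.44, beside 14.5% and 13.3% of all genes), and 0 were called in either direction against the other FVB tumors (median -1.26, or 0.24 without MMTV-Wnt 3), where 1 was lower at an unadjusted p under 0.05 in limma. The higher ones were Krt7 (4.69, adjusted p = 0.00728), Prom1, a stem and luminal surface protein (4.55, adjusted p = 0.0344), and Ly6d (4.83, adjusted p = 0.0451). The lower one was Muc1, the mucin of the apical membrane, at 2.40 to 5.21 in the tumors and 8.23 to 11.82 in the glands (-6.17, adjusted p = 5.39e-07). The 3 higher luminal calls became 1 without MMTV-Wnt 4 or FVB pregnant 1 or 2 and 6 without MMTV-Wnt 3, and the 1 lower 2 without MMTV-Wnt 2 and 3 without MMTV-Wnt 4. Prom1 was lost without MMTV-Wnt 1, 2 or 4 or FVB pregnant 1, 2 or 5 (adjusted p = 0.0537 to 0.157), and Ly6d without MMTV-Wnt 1 or 4 or FVB pregnant 1, 2, 3, 4 or 5 (adjusted p = 0.0614 to 0.289). The median difference from gland was 1.51 without MMTV-Wnt 3, 0.05 without MMTV-Wnt 2 and -0.34 without MMTV-Wnt 4. Krt7, Prom1 and Ly6d were not called in the fit of the 9 arrays (adjusted p = 0.0575, 0.101 and 0.156), nor was Ly6d with centring, no filter or the replicate block (adjusted p = 0.0518 to 0.0673).

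For 22 stem and progenitor genes 3 were higher and 2 lower than in gland, beside 14.5% and 13.3% of all genes. The median difference was 0.32, or -0.25 without MMTV-Wnt 1 and 1.10 without MMTV-Wnt 3. Against other tumors 3 were higher and 0 lower, beside 3.58% and 5.39%. The higher genes against gland were Axin2, Prom1 and Bcl11b, described above. The lower ones were the transporters Abcg2, at 4.79 to 9.28 in the tumors and 11.97 to 14.02 in the glands (-5.50, adjusted p = 9.08e-06), and Slc1a3 (-5.47, adjusted p = 2.88e-05). Aldh1a1, a retinal dehydrogenase used as a progenitor marker, was at 12.23, 9.81, 2.39 and 12.46 in the tumors, which put it 6.36 above the other FVB tumors (adjusted p = 0.000711). Abcg2 is also a milk secretion transporter. Lists of 24 junction genes (2 higher, 1 lower, median difference -0.16) and 18 mesenchymal/EMT genes (0 and 0, median 0.61, with 1 higher at an unadjusted p under 0.05 in limma) gave few calls against gland, and gave 1 higher and 1 lower, and 2 higher and 0 lower, against other tumors. The desmosome genes Pkp1 (4.20, adjusted p = 0.00589) and Dsc2 (3.25, adjusted p = 0.0228) were the higher junction genes, and Tjp3 (-3.10, adjusted p = 0.00962) was the lower. The 2 higher junction calls became 1 without MMTV-Wnt 1, 2 or 4 or FVB pregnant 2 or 4 and 4 without MMTV-Wnt 3, and the 1 lower 0 without MMTV-Wnt 3, 2 without MMTV-Wnt 4 and 3 without MMTV-Wnt 2. They were lost for Dsc2 without MMTV-Wnt 1, 2 or 4 or FVB pregnant 2 or 4 (adjusted p = 0.0634 to 0.111) and Tjp3 without MMTV-Wnt 3 (adjusted p = 0.111). The 3 higher stem and progenitor calls became 1 without MMTV-Wnt 2 or 4 or FVB pregnant 1, 2 or 5 and 5 without MMTV-Wnt 3. Against other tumors the 1 lower junction call became 0 without MMTV-Wnt 3, 2 without MMTV-Wnt 1 and 3 without MMTV-Wnt 2, and the 2 higher mesenchymal calls 1 without MMTV-Wnt 3. The median of the junction genes became 1.14 against gland without MMTV-Wnt 3, and against other tumors it was -1.02, or 0.12 without MMTV-Wnt 3 and -1.55 without MMTV-Wnt 2. That of the mesenchymal genes became -0.29 against gland without MMTV-Wnt 3. Dsc2 and Tjp3 were not called in the fit of the 9 arrays (adjusted p = 0.148 and 0.0758), Dsc2 was at 4.89 without MMTV-Wnt 3, and Tjp3 was at -1.84 with array weights.

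**Figure D3:**
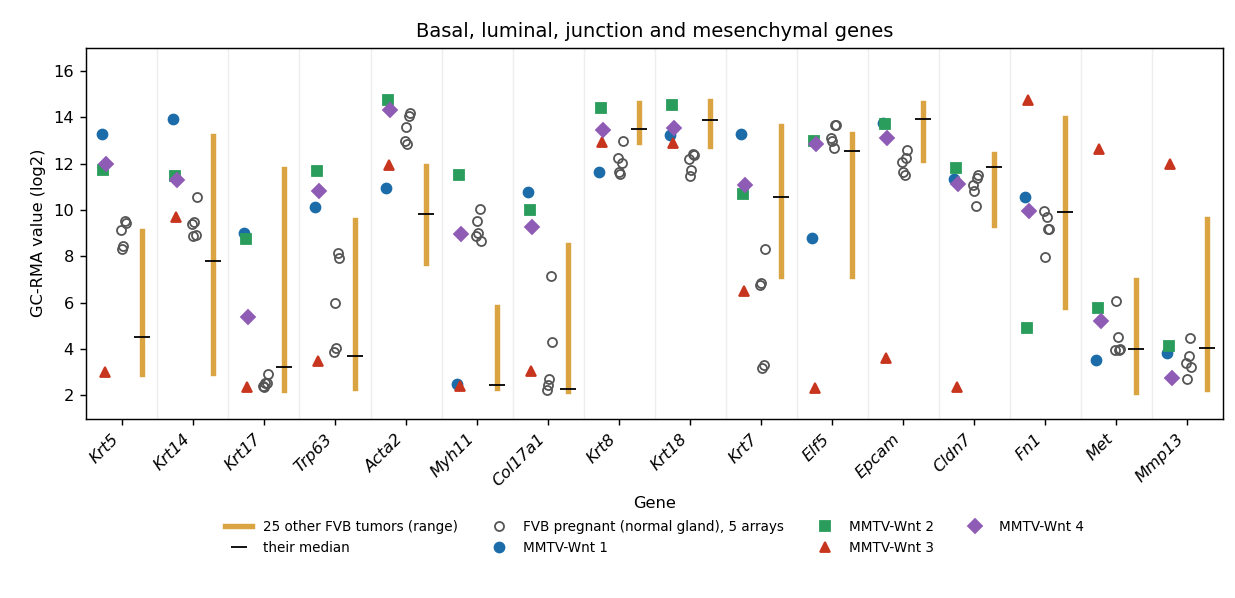
Log2 GC-RMA values (y axis) of 16 basal, luminal, junction and mesenchymal genes (x axis) in the 4 MMTV-Wnt tumors (filled symbols), 5 normal glands (open circles) and 25 other FVB tumors (bar with median). MMTV-Wnt 3 (triangles) lies at 2.99 for Krt5 and 3.60 for Epcam but at 12.93 for Krt8.

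Milk genes gave the widest gaps between tumor and gland. All 18 tested milk protein and milk secretion genes were lower in every MMTV-Wnt tumor than in every gland, 16 of them with a call, and the median difference was -8.63. Over all genes 9.10% had every tumor below every gland, and 13.3% were called lower. Csn2, beta-casein, was at 3.04, 2.50, 3.02 and 7.82 in the tumors and at 15.47, 15.50, 15.33, 15.36 and 15.21 in the glands (difference -11.28, SE 2.37, adjusted p = 0.000392). Its level was near the floor in 3 tumors and higher, though still far below gland, in MMTV-Wnt 4. Glycam1, a milk mucin, was at 2.17 to 2.55 in the tumors and 15.51 to 15.90 in the glands (-13.32, adjusted p = 1.21e-05), and Wap, whey acidic protein, was at 3.43, 3.13, 3.78 and 5.72 against 15.48 to 15.66 (-11.55, adjusted p = 1.76e-06). Lalba, the lactose synthase subunit alpha-lactalbumin, did not exceed 2.11 in any tumor (-11.65, adjusted p = 4.13e-05), and the caseins Csn1s2a (-12.55, adjusted p = 4.90e-05) and Csn1s1 (-11.44, adjusted p = 9.87e-05) fell alike. Casein Csn3 kept more of its level, with 7.32, 12.27, 7.06 and 12.86 in the tumors and 15.31 to 15.60 in the glands (-5.57, adjusted p = 0.00169). Where tumor values of these genes lie at the floor, the size of the difference depends on it. Not all lie there, since 5, 4, 2 and 9 of the 18 genes were over 8 in MMTV-Wnt 1 to 4.

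Promoters of the 4 milk protein genes that hold a STAT5 motif are printed here because prolactin acts on milk genes through STAT5. Of the 18 genes 12 matched a RefSeq promoter of assembly GRCm38.p6, which runs from 250 bases before to 50 bases after the start. The STAT5 consensus TTCNNNGAA, which reads the same on both strands, was in 4 of these 12 windows (33.3%), in 8.30% of all 32851 windows and in 0 of 19 windows of milk fat genes. A match describes the letters only. Capitals mark the motif, and each sequence runs 5′ to 3′ on the strand of its gene.
Csn2, chr5:87699376-87699675, minus strand: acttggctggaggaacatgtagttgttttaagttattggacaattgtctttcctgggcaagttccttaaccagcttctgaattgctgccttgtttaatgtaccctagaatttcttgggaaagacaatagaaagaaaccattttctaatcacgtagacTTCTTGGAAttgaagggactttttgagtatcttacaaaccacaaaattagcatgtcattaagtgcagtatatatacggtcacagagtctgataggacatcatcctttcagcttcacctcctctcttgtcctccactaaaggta
Csn1s1, chr5:87665958-87666257, plus strand: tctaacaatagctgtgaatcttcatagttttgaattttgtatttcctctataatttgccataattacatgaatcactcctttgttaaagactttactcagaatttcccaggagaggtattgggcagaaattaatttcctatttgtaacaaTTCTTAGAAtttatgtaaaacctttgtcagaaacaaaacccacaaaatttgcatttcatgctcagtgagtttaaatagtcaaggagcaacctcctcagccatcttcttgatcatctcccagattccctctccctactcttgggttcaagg
Csn1s2a, chr5:87774200-87774499, plus strand: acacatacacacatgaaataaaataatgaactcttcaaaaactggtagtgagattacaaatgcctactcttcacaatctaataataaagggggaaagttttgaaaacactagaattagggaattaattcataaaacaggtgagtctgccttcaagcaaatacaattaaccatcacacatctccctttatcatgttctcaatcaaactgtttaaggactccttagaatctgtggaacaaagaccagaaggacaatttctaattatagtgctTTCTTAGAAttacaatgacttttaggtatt
Glycam1, chr15:103565032-103565331, minus strand: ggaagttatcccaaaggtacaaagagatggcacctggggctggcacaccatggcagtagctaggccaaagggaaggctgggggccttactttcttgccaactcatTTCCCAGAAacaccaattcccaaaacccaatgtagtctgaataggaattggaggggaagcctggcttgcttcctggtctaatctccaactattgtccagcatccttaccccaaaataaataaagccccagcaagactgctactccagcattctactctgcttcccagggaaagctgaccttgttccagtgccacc

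Against the other FVB tumors 6 of the 18 milk genes were lower and 0 higher (median difference -2.87). Csn2 ran from 2.23 through 12.07 to 15.12 in those 25 tumors, so MMTV-Wnt tumors were within their range (-5.77, adjusted p = 0.0481). Csn1s2a (-6.34, adjusted p = 0.0184), Lalba (-5.31, adjusted p = 0.0333), Csn3 (-3.78, adjusted p = 0.0199) and the milk fat globule enzyme Xdh (-3.10, adjusted p = 0.00761) were among the 6. The count of 6 became 1 without MMTV-Wnt 1 or 3 and 2 without MMTV-Wnt 2. Calls were lost for Csn2 without MMTV-Wnt 1, 2 or 3 (adjusted p = 0.116 to 0.149), Csn1s2a without MMTV-Wnt 1 or 3 (adjusted p = 0.0675 and 0.0694) and Lalba without MMTV-Wnt 1, 2, 3 or 4 (adjusted p = 0.0621 to 0.0909), and for Csn2 without each of 18 tumors of other models (adjusted p = 0.0502 to 0.0616). Csn2 and Lalba were not called against all 7 other models (adjusted p = 0.094 and 0.0892), and Csn2 was not with array weights, centring, no filter or the mean of its probe sets (adjusted p = 0.0543 to 0.0809). Csn1s2a was at -3.93 as the mean of its probe sets.

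Genes for milk fat followed the milk proteins, with 18 of 21 lower and 1 higher than in gland (median difference -3.97). Fabp3, a fatty acid carrier of the secretory gland, was at 2.12, 2.07, 3.38 and 2.43 in the tumors and 14.13 to 14.97 in the glands (-12.09, adjusted p = 5.06e-08). Cidea, a lipid droplet protein (-11.04, adjusted p = 5.06e-08), the lipogenic regulator Thrsp (-10.13, adjusted p = 2.65e-05) and the fatty acid transporter Cd36 (-9.85, adjusted p = 1.40e-06) fell furthest after it. Fatty acid synthase, Fasn, was lower by a smaller step (9.46 to 10.90 against 13.99 to 14.76, difference -3.97, adjusted p = 3.69e-09). The exception was Scd2, a fatty acid desaturase, at 12.44 to 12.86 in the tumors and 9.47 to 10.88 in the glands (2.37, adjusted p = 9.82e-06). Against other FVB tumors 5 were lower and 0 higher, including Thrsp (-5.47, adjusted p = 0.00805), which lost its call without MMTV-Wnt 1 or 3 (adjusted p = 0.0548 and 0.0555). The count of 5 became 1 without MMTV-Wnt 3, 2 without MMTV-Wnt 1 and 3 without MMTV-Wnt 4. Thrsp was not called there with array weights (-3.42, adjusted p = 0.0751).

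Genes of hormone sensing and STAT5 signalling gave 5 lower and 1 higher of 14 (median difference -1.02). Stat5a, the main prolactin-activated factor of the gland, was at 4.32, 6.58, 8.08 and 10.91 in the tumors and at 10.34, 11.66, 11.22, 11.24 and 11.18 in the glands (-3.66, SE 0.75, adjusted p = 0.000321). MMTV-Wnt 4, the tumor with the highest levels of the caseins named above, was also the 1 tumor whose Stat5a value lay within the range of the glands. That is 1 tumor, and a link between Stat5a and casein levels was not tested. Cish, a STAT5 target that feeds back on it, was at 7.91 to 8.49 in all tumors and 10.59 to 11.35 in all glands (-2.71, adjusted p = 0.000177). The growth hormone receptor Ghr (-2.79, adjusted p = 0.000886), Stat5b (-1.35, adjusted p = 0.0109) and Tnfsf11, the RANK ligand (-2.76, adjusted p = 0.0100), were lower. Jak2, the kinase that activates STAT5, was higher (1.08, adjusted p = 0.0204), and lost its call without MMTV-Wnt 3 or FVB pregnant 3 (adjusted p = 0.140 and 0.0660). That 1 higher call became 0 without FVB pregnant 3 and 2 without MMTV-Wnt 4. Against the other FVB tumors 0 of 14 were called in either direction (median 0.08), with 1 higher and 1 lower at an unadjusted p under 0.05 in limma. Jak2 and Tnfsf11 were not called in the fit of the 9 arrays (adjusted p = 0.0777 and 0.0681), and Stat5a was at -2.2 with array weights.

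Fat and muscle markers fell with the milk genes. Of 17 adipocyte genes 16 were lower and 0 higher than in gland (median difference -7.80), beside 13.3% and 14.5% of all genes. All tumors lay below all glands for 14 of them, beside 9.10% of all genes. Adipoq, adiponectin, was at 2.45, 2.14, 2.06 and 5.18 in the tumors and at 14.07, 14.35, 14.17, 13.22 and 13.44 in the glands (-10.89, adjusted p = 6.06e-05). The hormone Retn (-9.0, adjusted p = 7.59e-07), Pck1, which feeds glycerol synthesis (-8.80, adjusted p = 1.57e-06), and the lipid droplet protein Cidec (-8.76, adjusted p = 1.87e-06) were as low. Ucp1, the uncoupler of brown fat, divided the glands, with 13.01, 13.96 and 14.05 in FVB pregnant 1 to 3 and 2.13 and 2.24 in FVB pregnant 4 and 5. The list means were 3.80 to 4.92 in the tumors, 9.84 to 11.93 in the glands and 3.72 to 6.93 in the other FVB tumors, where 1 gene, the glucose transporter Slc2a4, was called against MMTV-Wnt tumors (2.02 higher in MMTV-Wnt, adjusted p = 0.0353). That count of 1 became 0 without MMTV-Wnt 1, 2 or 4.

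All 18 skeletal muscle genes were lower than in gland (median difference -6.15), but the glands held unequal amounts. FVB pregnant 2 had a list mean of 5.24 and the other 4 glands 9.82 to 12.44, while the tumors were at 3.12, 2.60, 3.20 and 7.32. Only 1 of the 18 genes had all tumors below all glands, beside 9.10% of all genes. Tnnc2, a fast troponin, was at 2.21, 2.07, 2.09 and 9.88 in the tumors and at 5.78 to 13.71 in the glands (-7.29, adjusted p = 0.00726), and Atp2a1, the muscle calcium pump, fell by 7.53 (adjusted p = 0.000543). Tnnt3, another troponin (-7.09, adjusted p = 0.00238), and Myh1, a fast myosin (-6.93, adjusted p = 0.00350), were similar. Against the other FVB tumors 0 of 18 were called (median -0.07, or -1.51 without MMTV-Wnt 4), with 0 in either direction at an unadjusted p under 0.05 in limma. Array weights gave -4.34 for Tnnc2 (adjusted p = 0.143) and -4.52 for Tnnt3 (adjusted p = 0.047). Among the glands fat and muscle levels did not go together, FVB pregnant 2 having a muscle mean of 5.24 and an adipocyte mean of 11.93. The levels of both lists were lower in tumors than in glands, as those of the milk genes were, and their part in the other results was not tested.

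Salivary genes were high in MMTV-Wnt 2 and in some of the other FVB tumors. Car6, a secreted carbonic anhydrase, was at 12.63 in MMTV-Wnt 2, at 2.31, 3.08 and 3.65 in the other MMTV-Wnt tumors and at 5.66 to 7.35 in the glands, while the 25 other FVB tumors ran from 2.26 through 12.66 to 15.35 (-5.61, adjusted p = 0.00659). Of 12 tested members 2 were higher and 2 lower than in gland (median 0.08), beside 14.5% and 13.3% of all genes. Against other tumors 1 was higher and 4 lower (median -1.01), beside 3.58% and 5.39%. Aqp5, a water channel of secretory cells, was higher in all tumors (7.95, 10.17, 11.52 and 9.16) than in all glands (2.50 to 3.38, difference 6.75, adjusted p = 5.06e-08) and still lower than in the other FVB tumors (-2.98, adjusted p = 0.00198). Scgb3a1, a secretoglobin, was at 6.52 and 6.56 in MMTV-Wnt 1 and 4 and at 2.18 and 2.07 in the others (2.07, adjusted p = 0.00542). The lower calls were salivary amylase Amy1, at 13.11 in MMTV-Wnt 2 and 2.38 to 4.46 in the others against 9.62 to 11.42 in the glands (-5.05, adjusted p = 0.0478), and Bhlha15, a factor of secretory cells (-3.48, adjusted p = 0.0413). Against gland the 2 higher calls became 1 without MMTV-Wnt 1 or 4 and the 2 lower 0 without MMTV-Wnt 1, 3 or 4 or FVB pregnant 1, 2, 4 or 5 and 1 without FVB pregnant 3. They were lost for Amy1 without MMTV-Wnt 1, 3 or 4 or FVB pregnant 1, 2, 3, 4 or 5 (adjusted p = 0.0517 to 0.168), Bhlha15 without MMTV-Wnt 1, 3 or 4 or FVB pregnant 1, 2, 4 or 5 (adjusted p = 0.0503 to 0.145) and Scgb3a1 without MMTV-Wnt 1 or 4 (adjusted p = 0.070 and 0.0718). Against other tumors the 1 higher call became 0 without MMTV-Wnt 1 or 4 and the 4 lower calls 2 without MMTV-Wnt 1 or 3, with losses for Scgb3a1 without MMTV-Wnt 1 or 4 (adjusted p = 0.0585 and 0.0506) and Bhlha15 without MMTV-Wnt 1, 3 or 4 (adjusted p = 0.0593 to 0.0803). The list median against gland was 0.70, -0.52, 0.83 and 0.78 without MMTV-Wnt 1, 2, 3 and 4, and against other tumors -0.41, -2.49, -0.56 and -0.27. Amy1, Bhlha15 and Scgb3a1 were not called against gland in the fit of the 9 arrays (adjusted p = 0.105, 0.116 and 0.177). Amy1 was lost with array weights, no filter or values under 4 raised to 4 (adjusted p = 0.0549 to 0.0604), and Bhlha15 with that floor (adjusted p = 0.052) or as the mean of its probe sets (-1.7, adjusted p = 0.0861). Scgb3a1 was at 1.27 against both with the floor. Bhlha15 was lost against all 7 other models (adjusted p = 0.068), and its difference of -4.10 from the other FVB models was -2.32 as the mean of its probe sets.

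**Figure D4:**
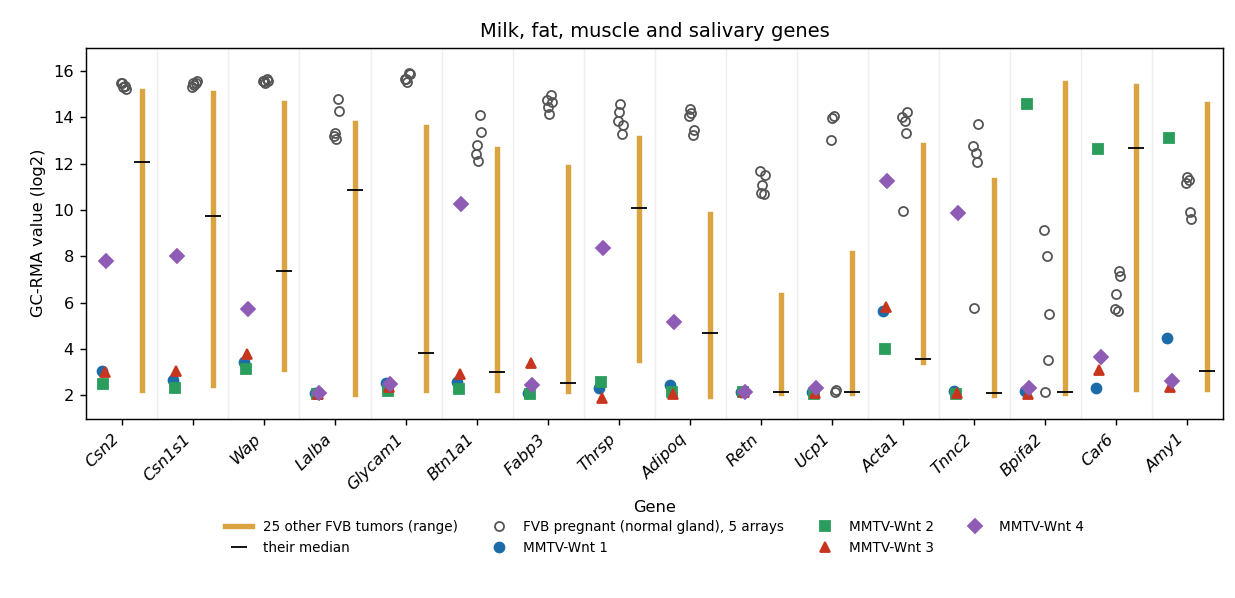
Log2 GC-RMA values (y axis) of 16 milk, fat, muscle and salivary genes (x axis) in the 4 MMTV-Wnt tumors (filled symbols), 5 normal glands (open circles) and 25 other FVB tumors (bar with median). Csn2 lies at 15.21 to 15.50 in the glands and at 2.50 to 7.82 in the MMTV-Wnt tumors, Tnnc2 and Acta1 are highest among MMTV-Wnt tumors in MMTV-Wnt 4, and Bpifa2, Car6 and Amy1 in MMTV-Wnt 2.

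Cell cycle genes were higher in the tumors than in the glands. Of 26 mitosis and spindle genes 23 were called higher than in gland and 0 lower, with a median difference of 3.08, and of 25 replication and E2F target genes 18 were higher and 0 lower, with a median of 2.42. Top2a, the topoisomerase that untangles replicated DNA, was at 10.79, 11.45, 10.78 and 10.83 in the tumors and at 6.59, 6.24, 4.91, 6.28 and 6.52 in the glands (4.85, SE 0.90, adjusted p = 9.30e-05). The groups were far apart, with little spread among the tumors. Mitotic examples with similar gaps were Anln, which builds the cleavage furrow (4.92, adjusted p = 8.16e-05), cyclin Ccnb2 (4.90, adjusted p = 4.86e-05) and the kinesin Kif20a (4.40, adjusted p = 7.35e-05). Replication examples were thymidine kinase Tk1 (4.72, adjusted p = 0.000332), the helicase subunits Mcm5 (4.11, adjusted p = 0.000335) and Mcm6 (3.82, adjusted p = 1.61e-05), and Uhrf1, which maintains DNA methylation (3.89, adjusted p = 0.000127). MMTV-Wnt 2 had the highest list means (9.61 and 9.25) and MMTV-Wnt 3 the lowest (7.83 and 7.81), all above the glands (4.82 to 5.91 and 5.37 to 6.55). Against the other FVB tumors 0 mitosis genes were higher and 1 lower (median -0.28, or -0.64 without MMTV-Wnt 2), a count that became 0 without MMTV-Wnt 3 and 2 without MMTV-Wnt 2. Of the replication genes 0 were called there (median -0.16), with 1 higher and 2 lower at an unadjusted p under 0.05 in limma.

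Inhibitors of the cell cycle gave few calls, with 1 of 10 higher and 2 lower than in gland (median difference 0.66, or 0.31 and 0.22 without MMTV-Wnt 2 and 3) and 0 called against other tumors (median 0.16; 1 higher at an unadjusted p under 0.05 in limma). Cdkn2b, which encodes the CDK inhibitor p15, was at 10.35, 7.22, 10.76 and 8.52 in the tumors and at 4.06 to 5.88 in the glands (4.65, adjusted p = 0.000279). Its neighbour Cdkn2a was at 8.18 in MMTV-Wnt 3 and at 2.37 to 2.53 in the other tumors and 2.20 to 2.54 in the glands (1.49, adjusted p = 0.313). Cdkn1c (-2.01, adjusted p = 0.0273) and the retinoblastoma gene Rb1 (-1.38, adjusted p = 0.0291) were lower, and lost their calls, Cdkn1c without MMTV-Wnt 1, 3 or 4 or FVB pregnant 2 or 3 (adjusted p = 0.0530 to 0.0992) and Rb1 without MMTV-Wnt 1, 2 or 3 or FVB pregnant 3 or 5 (adjusted p = 0.0501 to 0.157). The 1 higher inhibitor became 2 without FVB pregnant 5 and 3 without MMTV-Wnt 3. Myc targets and ribosome biogenesis genes gave 8 of 25 higher and 0 lower than in gland (median 0.53), among them Nop58 (1.83, adjusted p = 0.0255), Gar1 (1.75, adjusted p = 0.000446), Fbl (1.66, adjusted p = 0.000426) and Nop56 (1.56, adjusted p = 0.00244), all tied to small nucleolar complexes, and 1 gene was lower than in other tumors. Nop58 lost its call without MMTV-Wnt 2 or 4 or FVB pregnant 1 or 3 (adjusted p = 0.0518 to 0.0976), and the 1 lower call against other tumors became 0 without MMTV-Wnt 1. Rb1 was not called in the fit of the 9 arrays (adjusted p = 0.0525), and array weights ended the calls of Rb1 (-0.76, adjusted p = 0.199) and Cdkn1c (adjusted p = 0.0549).

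The size of the difference from gland singled out a further set of genes, among called genes whose tumors and glands did not overlap. That lack of overlap was a condition of the selection and not a result. Moxd1, a monooxygenase of unsettled function related to dopamine beta-hydroxylase, was at 13.30, 12.75, 11.35 and 12.99 in the tumors and at 5.32, 5.21, 3.23, 4.67 and 5.29 in the glands (7.85, SE 1.55, adjusted p = 0.000195). It was 6.65 above the other FVB tumors (adjusted p = 0.000505), which ran from 2.28 through 4.84 to 11.47. Cpxm2, a carboxypeptidase relative that binds collagen, was at 7.86, 7.07, 10.21 and 9.31 against 2.31 to 2.80 (6.08, adjusted p = 5.98e-06), and the highest of the other FVB tumors stood at 6.89. Further genes among those with the largest rises were the carbonic anhydrase Car12 (6.47, adjusted p = 2.69e-07), the cell adhesion gene Emb (6.21, adjusted p = 0.00133), Wfdc2, a secreted protease inhibitor of epithelia (6.08, adjusted p = 0.000148), Pdlim4, an actin-binding protein (5.91, adjusted p = 0.000129), the membrane protein gene Emp2 (5.60, adjusted p = 1.01e-07) and the proteoglycan Vcan (5.56, adjusted p = 0.00209). Col18a1, a basement membrane collagen, was at 11.74, 10.31, 10.97 and 10.98 against 3.69 to 6.60 in the glands (5.89, adjusted p = 0.000290). At the other end, after the milk and fat genes, came Lao1, an amino acid oxidase of milk, at 4.10 to 4.16 against 13.36 to 15.15 (-10.38, adjusted p = 5.18e-10), and the collectin Sftpd (-9.99, adjusted p = 1.39e-06). Cpxm2 was at 3.9 and Emp2 at 3.36 as the mean of their probe sets.

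Called the same way in both comparisons were 162 higher and 193 lower genes, which share the 4 MMTV-Wnt tumors. The higher ones with the largest difference from other FVB tumors included, after Moxd1, Sostdc1 and Axin2, the hyaluronan synthase Has2. It was at 9.46, 8.10, 8.59 and 7.24 in MMTV-Wnt tumors, at 2.60 to 3.59 in the glands and at 2.31 to 6.27 in the other tumors, and so overlapped neither (5.43 and 5.28, adjusted p = 4.87e-05 and 3.25e-05). Antxr1, an anthrax toxin receptor that binds collagen, was at 12.08, 10.39, 10.75 and 11.64 with glands at 8.25 to 9.29 and a median of 5.66 in other tumors (2.61 and 5.09, adjusted p = 0.00849 and 1.24e-06). Apod, a lipid carrier (4.42 and 5.29, adjusted p = 0.0171 and 0.00203), and Col17a1, the hemidesmosome collagen of basal cells (4.48 and 5.10, adjusted p = 0.0338 and 0.00872), were low in MMTV-Wnt 3 alone, at 5.39 and 3.07. Fbln1, a matrix protein (4.55 and 4.91, adjusted p = 0.00318 and 0.000633), Dpysl3, a cytoskeletal protein of neurons (3.22 and 5.12, adjusted p = 0.0409 and 0.000540), and Stra6, the retinol receptor (5.51 and 4.83, adjusted p = 0.000630 and 0.00104), completed the list. Stra6 was at 12.68 in MMTV-Wnt 1 and at 4.36 to 7.42 in the others.

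Genes lower in both included, after Csn1s2a, Csn2, Thrsp, Lalba and Bhlha15, the stress-induced pseudokinase Trib3. It was at 3.41, 4.14, 5.53 and 3.97 in MMTV-Wnt tumors, at 6.09 to 8.72 in the glands and at 6.26 to 10.49 in the other FVB tumors, and overlapped neither (-3.03 and -4.08, adjusted p = 0.000757 and 6.66e-06). Cox7a1, a respiratory chain subunit of muscle and brown fat, was at 2.78 to 3.29 in MMTV-Wnt tumors and 7.04 to 13.46 in the glands (-8.16 and -4.05, adjusted p = 6.49e-07 and 0.00224), and the aminopeptidase Anpep was lower (-3.20 and -4.03, adjusted p = 0.00123 and 3.72e-05). Pglyrp1, a bacterial sensor (-4.6 and -4.90, adjusted p = 0.0252 and 0.00984), was at 11.66 in MMTV-Wnt 2 and at 2.55 to 2.66 in the others, and Trim46, a cytoskeletal protein, was lower as well (-3.10 and -4.00, adjusted p = 0.0244 and 0.00169). Only 8 genes were higher than gland yet lower than other tumors, Aqp5 among them, and 7 the reverse. Against gland, calls were lost for Apod without MMTV-Wnt 1 or 4 (adjusted p = 0.0782 and 0.0705), Col17a1 without MMTV-Wnt 1, 2 or 4 or FVB pregnant 1, 2 or 3 (adjusted p = 0.0697 to 0.124) and Dpysl3 without MMTV-Wnt 2, 3 or 4 or FVB pregnant 1 or 2 (adjusted p = 0.0597 to 0.126). The lower calls there were lost for Pglyrp1 without MMTV-Wnt 1, 3 or 4 (adjusted p = 0.0939 to 0.0970) and Trim46 without MMTV-Wnt 1, 2 or 3 or FVB pregnant 4 or 5 (adjusted p = 0.0570 to 0.0890). Against other tumors they were lost for Col17a1 without MMTV-Wnt 1 (adjusted p = 0.0780), Vcan without MMTV-Wnt 1, 2 or 4 (adjusted p = 0.0553 to 0.0615) and Pglyrp1 without MMTV-Wnt 1, 3 or 4 (adjusted p = 0.0692 to 0.0818). Apod, Col17a1, Pglyrp1 and Trim46 were not called against gland in the fit of the 9 arrays (adjusted p = 0.051 to 0.101). Pglyrp1 and Trim46 were not with values under 4 raised to 4 (adjusted p = 0.0646 and 0.057), nor Trim46 with array weights (-2.01, adjusted p = 0.0998), nor Dpysl3 as the mean of its probe sets (2.06, adjusted p = 0.068, and 2.77 against other tumors). Vcan and Lao1 were called against the other FVB models (3.85 and -3.13) but not against all 7 other models (adjusted p = 0.0673 and 0.0813).

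Of 31 collagens and other matrix genes 4 were higher and 0 lower than in gland, beside 14.5% and 13.3% of all genes (median difference 0.98), and 8 were higher and 0 lower than in other tumors, beside 3.58% and 5.39% (median 1.71). Without MMTV-Wnt 3 the medians were 0.05 and 0.85, and without MMTV-Wnt 2 the median against gland was 1.69. Besides Col18a1, the higher ones against gland were thrombospondin Thbs1 (4.71, adjusted p = 2.18e-06), the fibrillar collagen Col11a1 (4.05, adjusted p = 0.0463) and Col4a1 of the basement membrane (1.5, adjusted p = 0.0399). Col4a1 (2.27, adjusted p = 0.000817) and Col18a1 (4.09, adjusted p = 0.00498) were also higher than in other tumors, as was Dcn, decorin (5.17, adjusted p = 0.00854). MMTV-Wnt 2 had the lowest list mean (7.88) and MMTV-Wnt 3 the highest (11.47), and the 8 calls against other tumors became 5 without MMTV-Wnt 3 and 17 without MMTV-Wnt 2. Against gland the 4 calls became 2 without MMTV-Wnt 4 or FVB pregnant 1, 3 or 5, with losses for Col11a1 without MMTV-Wnt 1, 2 or 4 or FVB pregnant 1, 2, 3 or 5 (adjusted p = 0.0597 to 0.132) and Col4a1 without MMTV-Wnt 1, 2 or 4 or FVB pregnant 1, 3, 4 or 5 (adjusted p = 0.0557 to 0.0939). Col11a1 was also lost with values under 4 raised to 4, no filter, the replicate block or the mean of its probe sets (adjusted p = 0.053 to 0.0734), and Col4a1 with centring (adjusted p = 0.0545).

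Of 19 integrins and laminins 4 were higher and 1 lower than in gland (median 0.97), and 4 were higher than in other tumors (median 0.32). Itga9, which pairs with Itgb1 to bind tenascin, was at 9.94, 8.64, 8.79 and 8.30 against 3.68 to 4.58 (4.86, adjusted p = 5.54e-05) and was 2.75 above other tumors (adjusted p = 0.00859). Lamc1, a laminin chain, rose over both (1.63 and 2.05, adjusted p = 0.0283 and 0.00280), and Nid1, a linker of basement membranes, was lower than in gland (-1.90, adjusted p = 0.0290). The 4 higher calls against gland became 1 without MMTV-Wnt 1 and 2 without FVB pregnant 4. Calls were lost for Lamc1 without MMTV-Wnt 1 or FVB pregnant 1, 2 or 4 (adjusted p = 0.0504 to 0.123) and Nid1 without MMTV-Wnt 1, 2 or 4 or FVB pregnant 3 (adjusted p = 0.0581 to 0.134), and against other tumors Itga9 lost its call without MMTV-Wnt 1 (adjusted p = 0.0673). The mean of probe sets gave 0.97 and 1.02 for Lamc1, called against neither (adjusted p = 0.249 and 0.206), 2.18 and 1.5 for Itga9, the latter not called (adjusted p = 0.0796), and no call for Nid1 (-1.46, adjusted p = 0.111).

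Proteases and inhibitors gave 3 of 22 higher and 1 lower than in gland (median 1.15, beside 14.5% and 13.3% of all genes), and 3 higher than in other tumors (median 1.01, beside 3.58%). Both medians rested on MMTV-Wnt 3, whose list mean was 9.75 with 5.49 to 6.33 in the other MMTV-Wnt tumors and 5.75 to 6.31 in the glands, and became 0.05 and -0.07 without it. Mmp14, a membrane collagenase, was at 12.39, 9.62, 12.86 and 9.78 against 7.34 to 7.95 (3.40, adjusted p = 0.000264), Plat, tissue plasminogen activator, was higher by 3.63 (adjusted p = 0.0101), and Timp1, highest in MMTV-Wnt 3 (13.81), by 3.96 (adjusted p = 0.0151). The aggrecanase Adamts5 fell (-4.95, adjusted p = 0.000374). Plat (3.59, adjusted p = 0.00609) and Mmp14 (2.39, adjusted p = 0.00416) were also higher than in other tumors. Timp1 lost its call against gland without MMTV-Wnt 3 (adjusted p = 0.150), and Mmp14 against other tumors without MMTV-Wnt 1 or 3 (adjusted p = 0.0519 and 0.0646). Timp1 was not called in the fit of the 9 arrays (adjusted p = 0.0743), nor Mmp14 against other tumors with array weights (1.44, adjusted p = 0.0598).

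FGFs signal through receptor tyrosine kinases, and active ERK induces several inhibitors of the same pathway. Of 13 FGF pathway genes 6 were higher and 1 lower (median difference 1.67), and against other tumors 1 was higher and 0 lower (median -0.02). Spry1, an inhibitor of receptor signalling, was at 9.91, 10.27, 10.10 and 9.08 in the tumors and at 5.58, 5.91, 7.14, 5.06 and 5.09 in the glands (4.08, adjusted p = 4.58e-05). The ETS factors Etv5 (4.01, adjusted p = 0.00373) and Etv4 (2.53, adjusted p = 0.000961) and the ERK phosphatase Dusp6 (3.07, adjusted p = 0.000390), which ERK induces, rose with no overlap. Fgf13 was lower (-3.38, adjusted p = 0.0355), a call lost without MMTV-Wnt 1, 3 or 4 or FVB pregnant 3, 4 or 5 (adjusted p = 0.0617 to 0.0871), and the 1 gene higher than in other tumors became 0 without MMTV-Wnt 1, 2 or 4. Of 11 ErbB genes 2 were higher and 1 lower than in gland, beside 14.5% and 13.3% of all genes. The median was 1.02, or 0.57 without MMTV-Wnt 3. The ligand Tgfa (3.44, adjusted p = 0.00349) and the receptor Erbb2 (2.14, adjusted p = 0.00686) were higher, and the ligand Nrg4 was lower (-6.51, adjusted p = 3.00e-08). Against other tumors 1 ErbB gene was lower, beside 5.39%. Erbb2 lost its call without MMTV-Wnt 1 (adjusted p = 0.0652). Erbb2 was not called in the fit of the 9 arrays (adjusted p = 0.115), nor Fgf13 with values under 4 raised to 4 (-2.15, adjusted p = 0.0876).

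Notch genes were called higher in 5 of 20 and lower in 2 (median 0.44). Hes1, the direct Notch target, was at 9.18, 10.63, 8.34 and 9.91 against 4.16, 6.02, 4.23, 4.6 and 6.92 in the glands (4.33, adjusted p = 2.26e-05), above every gland. The feedback inhibitor Nrarp (2.26, adjusted p = 0.0170), the transcription factor Rbpj (1.96, adjusted p = 0.0124), the receptor Notch2 (1.96, adjusted p = 0.00462) and Jag2 were the others, and the glycosyltransferases Mfng (-2.39, adjusted p = 0.00474) and Rfng (-1.06, adjusted p = 0.0425) were lower. Against other tumors 2 were higher, Notch2 (1.83, adjusted p = 0.00418) and Jag2. The 5 higher calls became 3 without MMTV-Wnt 1, the 2 lower 1 without MMTV-Wnt 1 or 3 or FVB pregnant 2, 4 or 5, and the 2 against other tumors 1 without MMTV-Wnt 1. Beside Jag2, given above, calls were lost for Nrarp without MMTV-Wnt 1 or 4 or FVB pregnant 5 (adjusted p = 0.050 to 0.0822), Rbpj without MMTV-Wnt 3 (adjusted p = 0.0794) and Rfng without MMTV-Wnt 1 or 3 or FVB pregnant 2, 4 or 5 (adjusted p = 0.0637 to 0.245). Nrarp and Rfng were not called in the fit of the 9 arrays (adjusted p = 0.0662 and 0.104), Rfng was not with array weights (-0.68) or the replicate block (adjusted p = 0.284 and 0.0535), and Mfng was not with values under 4 raised to 4 (-1.18, adjusted p = 0.0568).

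In the BMP and TGF-beta list 7 of 28 genes were higher and 0 lower than in gland (median 0.94, or 0.55 without MMTV-Wnt 3), and 5 were higher and 1 lower than in other tumors (median 0.50). Bmp7, a ligand made by epithelium, was at 9.43, 8.17, 2.12 and 8.34 in the tumors, at 2.14 to 2.50 in the glands and at 2.08 to 4.81 in the other FVB tumors (4.79, adjusted p = 0.000454, and 4.64, adjusted p = 0.000243). In MMTV-Wnt 3 alone it was at the floor. Inhbb, an activin subunit, was at 9.82 to 11.42 in every tumor and 5.17 to 6.85 in every gland (4.71, adjusted p = 3.19e-05), and Fst and Bambi are described above. Against other tumors the 5 higher calls became 3 without MMTV-Wnt 1, 3 or 4 and the 1 lower 0 without MMTV-Wnt 1 or 3.

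Among 14 IGF genes 1 was higher and 2 lower than in gland, beside 14.5% and 13.3% of all genes (median -0.34, or 0.15 without MMTV-Wnt 3). Against other tumors 4 were higher and 2 lower (median 0.59), beside 3.58% and 5.39%. Igfbp3, which carries IGF, was at 11.17 to 12.36 against 6.80 to 8.40 (4.19, adjusted p = 1.14e-06), Igfals, its serum partner, was at 2.02 to 2.09 against 8.23 to 9.98 (-7.32, adjusted p = 1.88e-09), and Igfbp6 was lower (-3.87, adjusted p = 0.00178). Igfbp2 (4.86, adjusted p = 0.000209) and Igfbp4 (2.65, adjusted p = 0.000711) were higher than in other tumors, together with Igfbp3 (1.46, adjusted p = 0.0423) and Igfbp7 (1.35, adjusted p = 0.0498). These 4 calls became 2 without MMTV-Wnt 1, 3 or 4, the 2 lower 1 without MMTV-Wnt 1, 2, 3 or 4, and the 1 higher call against gland 2 without MMTV-Wnt 1, 2 or 4 and 3 without MMTV-Wnt 3. Igfbp3 lost its call against other tumors without MMTV-Wnt 1, 2, 3 or 4 (adjusted p = 0.0532 to 0.179), and without each of 7 tumors of other models (adjusted p = 0.050 to 0.0542). Igfbp3 was not called against all 7 other models (adjusted p = 0.124) or with array weights (adjusted p = 0.055). Igfals, lower than in the other FVB models by a difference of -2.26, was not called against all 7 (adjusted p = 0.0667) and was at -1.47 with values under 4 raised to 4.

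Hedgehog genes gave 1 of 7 higher than gland (median 1.24, or 0.63 without MMTV-Wnt 1), the receptor and target Ptch1 (1.30, adjusted p = 0.0364), and 1 higher than other tumors. Ptch1 lost its call without MMTV-Wnt 1 or 2 or FVB pregnant 1, 2 or 3 (adjusted p = 0.0570 to 0.32). The 1 call against gland became 0 without MMTV-Wnt 2 or FVB pregnant 1, 2 or 3 and 2 without MMTV-Wnt 3, and that against other tumors 0 without MMTV-Wnt 2, 3 or 4. Of 16 p53 targets 2 were higher and 1 lower than in gland (median 0.10, beside 14.5% and 13.3% of all genes), with Gadd45a, a growth arrest gene (2.45, adjusted p = 0.00382), and Zmat3 (1.69, adjusted p = 0.0439) higher and the ribonucleotide reductase subunit Rrm2b lower (-1.14, adjusted p = 0.00585), and 1 was higher than in other tumors. Zmat3 lost its call without MMTV-Wnt 1, 2, 3 or 4 or FVB pregnant 1, 3 or 4 (adjusted p = 0.0511 to 0.122), and the 1 lower p53 target became 2 without MMTV-Wnt 1. Of 22 glycolysis and hypoxia genes 3 were higher and 4 lower than in gland, beside the same 14.5% and 13.3% of all genes. The higher ones were the collagen-modifying enzymes P4ha1 (4.51, adjusted p = 0.000160) and Plod2 (4.45, adjusted p = 0.00145) and Car12. The lower ones were the glycolytic enzymes Hk2 (-2.16, adjusted p = 0.00436), Pfkl (-1.41, adjusted p = 0.00920) and Aldoa (-1.20, adjusted p = 0.0188) and the mitophagy gene Bnip3 (-2.61, adjusted p = 0.00156). Aldoa lost its call without MMTV-Wnt 2 or 4 or FVB pregnant 3 (adjusted p = 0.0571 to 0.101). That list had a median of 0.06 against gland and of -0.41 against other tumors, where 0 were higher and 2 lower, a count that became 1 without MMTV-Wnt 1, 2, 3 or 4. Ptch1 and Aldoa were not called in the fit of the 9 arrays (adjusted p = 0.167 and 0.0625), nor Ptch1 with centring or quantile normalization (adjusted p = 0.0556 and 0.0545).

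Of 24 homeobox, T-box and Sox factors 3 were higher and 0 lower than in gland (median 0.10), beside 14.5% and 13.3% of all genes. Tbx2, a T-box repressor of mammary development, was at 8.06, 6.59, 2.09 and 5.45 in the tumors and at 2.14 to 2.25 in the glands (3.37, adjusted p = 0.000261), again at the floor in MMTV-Wnt 3, and was 3.16 above other tumors (adjusted p = 0.000214). Dlx3, an ectodermal factor (1.91, adjusted p = 0.0302), and Sox4 were the others, and 2 of the list were higher than in other tumors, or 1 without MMTV-Wnt 2. Dlx3 was highest in MMTV-Wnt 4 (7.00) and lost its call without it (1.03, adjusted p = 0.259). Dlx3 was not called in the fit of the 9 arrays (adjusted p = 0.105), with centring (adjusted p = 0.0516) or with values under 4 raised to 4 (0.78, adjusted p = 0.155), and was at 3.2 with array weights. That floor put Tbx2 at 2.03 and 1.88.

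Interferon-stimulated genes gave calls against other tumors and not against gland. Their list means were 4.16 to 5.93 in MMTV-Wnt tumors and 4.25 to 9.58 in the other FVB tumors, so these groups overlapped. Of 20 tested 0 were called against gland (median -0.25), with 0 higher and 1 lower at an unadjusted p under 0.05 in limma, whereas 7 were lower and 0 higher than in other FVB tumors (median -2.07 beside -0.09 over all genes). Usp18, which limits interferon signalling, was at 2.24, 2.66, 2.67 and 2.35 in MMTV-Wnt tumors and at 5.18, 2.21, 5.06, 2.15 and 4.02 in the glands, and ran from 2.26 through 8.37 to 12.05 in the other FVB tumors (-5.06, adjusted p = 0.00466). The antiviral enzyme Oas1a was at 4.24 to 6.85 in MMTV-Wnt tumors with a median of 10 in the others (-3.84, adjusted p = 0.000505). Ifit1 (-4.26, adjusted p = 0.0140), Oasl2 (-3.69, adjusted p = 0.0282), Rsad2 (-2.76, adjusted p = 0.0343), the RNA sensor Ifih1 (-2.34, adjusted p = 0.0196) and Oasl1 (-1.99, adjusted p = 0.0434) were the rest. The 7 calls became 2 without MMTV-Wnt 1 and 3 without MMTV-Wnt 4, MMTV-Wnt 1 having the lowest list mean (4.16).

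Markers of other cells of the tissue were counted in the same way. Of 19 macrophage genes 7 were higher and 0 lower than in gland (median 1.65, or 0.74 without MMTV-Wnt 3) and 0 were called against other tumors (median 0.79, or -0.16 without MMTV-Wnt 3 and 1.30 without MMTV-Wnt 1), where 2 were higher at an unadjusted p under 0.05 in limma. The receptor Csf1r was at 11.60, 11.86, 14.14 and 12.38 in the tumors and at 10.65, 10.30, 10.56, 10.51 and 10.32 in the glands (2.02, adjusted p = 0.00415), and Cd68 (3.02, adjusted p = 0.00826) and the Fc receptor Fcgr3 (2.68, adjusted p = 0.0256) were highest in MMTV-Wnt 3, at 11.47 and 11.75. Calls were lost for Cd68 without MMTV-Wnt 3 (adjusted p = 0.0867) and Fcgr3 without MMTV-Wnt 3 or FVB pregnant 1 (adjusted p = 0.206 and 0.0780). The 7 calls became 2 without MMTV-Wnt 3 and 11 without MMTV-Wnt 1, and the list mean of MMTV-Wnt 1 (7.28) was within the range of the glands (7.07 to 7.48). Of 19 endothelial genes 1 was higher and 2 lower than in gland, beside 14.5% and 13.3% of all genes. The higher one was the sialomucin Emcn (2.74, adjusted p = 0.00877). The lower ones were Tek, the angiopoietin receptor (-2.81, adjusted p = 0.000158), and the arterial factor Sox17 (-2.79, adjusted p = 0.000386). The list median of -0.31 became 0.16 without MMTV-Wnt 1 and -0.71 without MMTV-Wnt 3. Against other tumors 6 endothelial genes were higher and 0 lower (median 1.29), among them Emcn (2.70, adjusted p = 0.00526), a count that became 2 without MMTV-Wnt 3 and 3 without MMTV-Wnt 2. Against gland the 1 higher call became 2 without MMTV-Wnt 1 or 4 and the 2 lower 4 without MMTV-Wnt 3. Fcgr3 was not called in the fit of the 9 arrays (adjusted p = 0.0984).

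Lymphoid, granulocyte, erythroid and keratinised lists gave few calls. Of 5 T cell genes 1 was lower than in gland, granzyme Gzma (-2.42, adjusted p = 0.0330), and of 6 B and plasma cell genes 1 was lower, the antibody joining chain Jchain (-5.61, adjusted p = 0.00543), and 1 higher, the adaptor Blnk (2.88, adjusted p = 0.00559). Gzma lost its call without MMTV-Wnt 2 or 3 or FVB pregnant 1, 3, 4 or 5 (adjusted p = 0.0508 to 0.0934), and the 1 T cell gene higher than in other tumors became 0 without MMTV-Wnt 3. Of 6 neutrophil and mast cell genes 0 were called in either comparison, with 0 higher and 1 lower than in gland at an unadjusted p under 0.05 in limma and a median of 0.68 that became -0.62 without MMTV-Wnt 3. S100a9, a neutrophil calcium-binding protein, was at 11.73 in MMTV-Wnt 3 and at 2.84 to 3.89 in the others. The erythroid list had 4 genes, with the heme enzyme Alas2 (-5.07, adjusted p = 0.000234) and the globin Hbb-b2 (-1.72, adjusted p = 0.00847) lower and the globin Hba-a2 higher (2.31, adjusted p = 0.0304), near-identical globin copies being hard to separate by probes. Hba-a2 was at 5.46 and 7.78 in MMTV-Wnt 3 and 4 and near the floor in the others, and lost its call without MMTV-Wnt 3 or 4 or FVB pregnant 3 (adjusted p = 0.0503 to 0.278). Hbb-b2 and Hba-a2 were not called in the fit of the 9 arrays (adjusted p = 0.0682 and 0.158). Raising values under 4 to 4 ended the calls of Hbb-b2 (-0.66, adjusted p = 0.0597) and Gzma (-1.48, adjusted p = 0.067) and put Hba-a2 at 1.31, which array weights put at 3.59. Of 10 keratinised genes 0 were called in either comparison, with 2 higher than in gland at an unadjusted p under 0.05 in limma, a count of calls that became 1 without MMTV-Wnt 3 and 2 without MMTV-Wnt 2. Among the 10 was Krt6a, at 12.53 and 9.19 in MMTV-Wnt 1 and 4 and near the floor in the others (4.09, adjusted p = 0.0943).

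**Figure D5:**
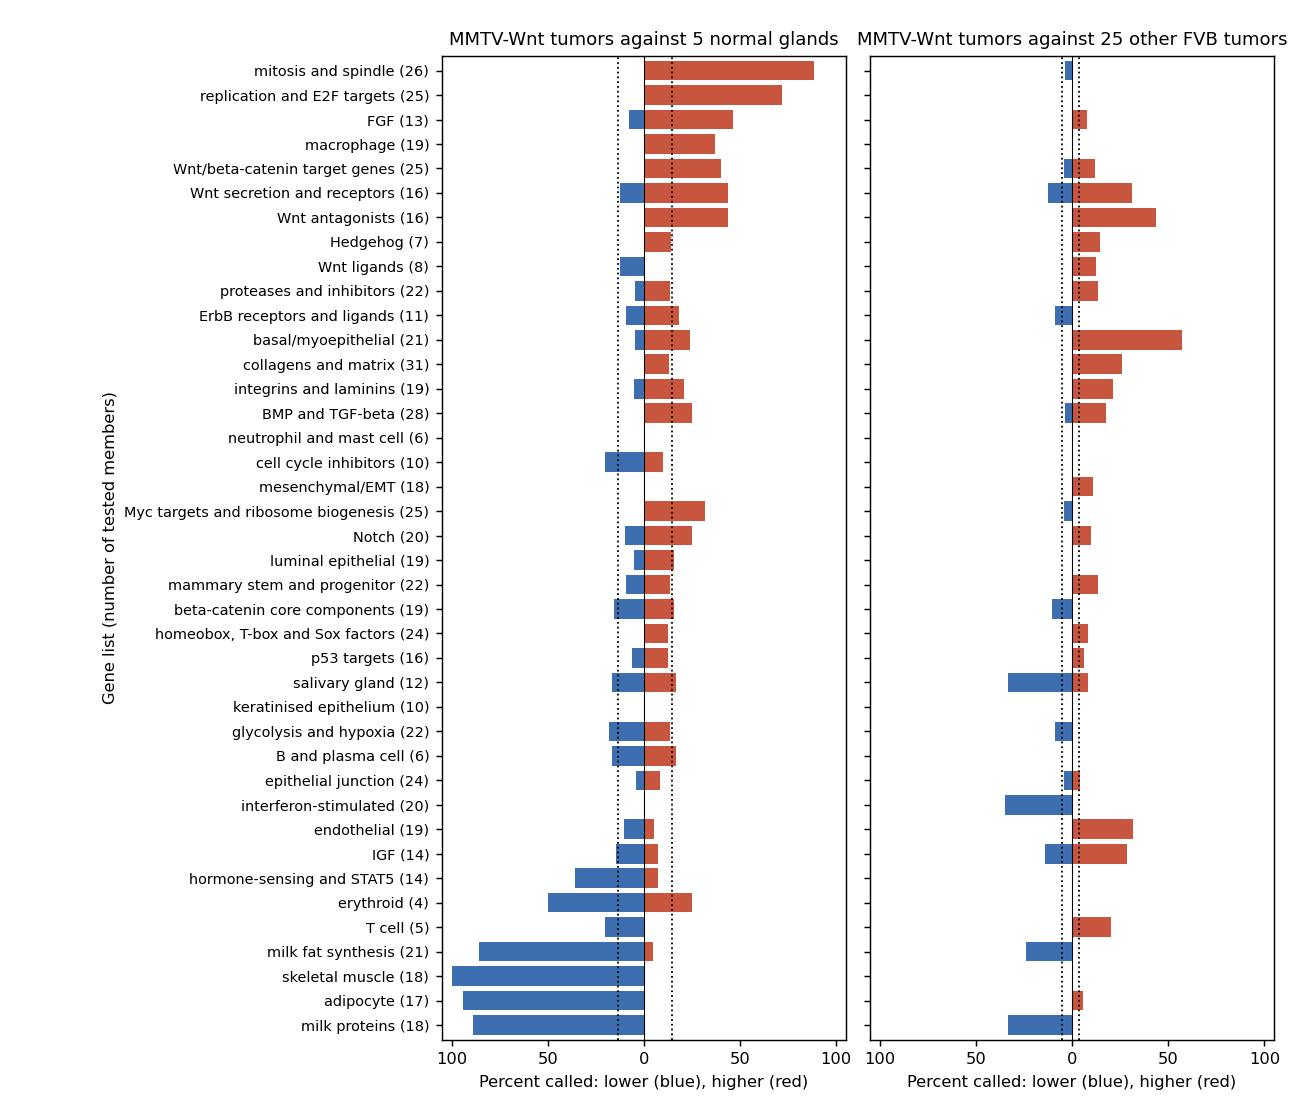
Percent of the tested members of each gene list (y axis, number of members in brackets) called lower (blue, to the left) or higher (red, to the right) in MMTV-Wnt tumors than in 5 normal glands (left panel) and than in 25 other FVB tumors (right panel), with dotted lines at the percent called over all 9329 genes. Mitosis (23 of 26) and milk protein genes (16 of 18) stand out against gland, and basal (12 of 21) and antagonist genes (7 of 16) against other tumors.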

How the data were processed

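Total RNA of snap-frozen tumors and glands, isolated with the mirVana kit, was labelled with the One Cycle kit, hybridized to Affymetrix mouse genome arrays and scanned in GCOS. Tumors came from individual mice, 1 array each. The deposited log2 values were made by the authors with GC-RMA in Partek, after which probe sets with a present or marginal MAS5 call in fewer than 3 samples were removed. Versions of these tools are not given in the sources used here. GC-RMA pulls weak signals to a common floor, so large differences depend on that floor, and a 3′ array measures 1 end of each transcript. Values near the floor have no reliable order. No slide or scan batch is given in the sources used here.

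The table held 18586 probe sets on 46 arrays with values from 1.7 to 15.98 and 0 missing values, and 0 columns were left unmapped. The platform annotation gave 1 gene for 16962 probe sets, several for 569 and none for 1055, and 16941 of those with 1 gene were matched by gene ID to RefSeq symbols (GRCm38.p6). Probe sets over 4 on the log2 scale in at least 3 arrays were kept (16154, of which 14843 had 1 gene). Each of 9329 genes was represented by the probe set with the highest mean over all arrays, 3568 of them out of more than 1.

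Levels of 9 groups were fitted in 1 linear model with lmFit and eBayes in limma 3.58.1 (R 4.3.3, jsonlite 2.0.0, statmod 1.5.0), without covariates. The methods of the study describe no test for a tumor model against gland on mRNA, and array data of this kind are fitted by limma. The first contrast was MMTV-Wnt minus FVB pregnant and the second MMTV-Wnt minus the equally weighted mean of 5 other FVB models. P-values were adjusted over all 9329 genes by Benjamini-Hochberg, two-sided. The threshold for a call was 0.05 on the adjusted p, with a 2-fold difference added for counts over all genes where stated. The code of the fit was run on simulated data with normal noise and, for each gene, the same spread in every group. The MMTV-Wnt tumors were less alike than the glands, so that run cannot show how reliable their calls are. The number of arrays limits the precision. Figures were drawn with Python 3.11.15 and matplotlib 3.10.9.

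The genes named were 12 per direction with the largest difference from gland among called genes without overlap, members of 5 Wnt lists called at 2-fold or more, up to 4 per direction of each other list, 10 per direction called the same way in both contrasts, and fixed genes (Krt5, Krt14, Krt8, Krt18, Elf5, Csn2, Wap, Axin2, Lef1, Ctnnb1, Myc, Ccnd1, Cdkn2a, Wnt1). In all 180 genes and 40 lists were examined. Some other members were named after their values were seen. Members and lists were chosen with earlier results of these data known. Lef1 did not pass the filter on low values, Wnt1, Hras, Trp53, Esr1, Prlr, Areg and the miRNA arrays were not analysed here, and 1 gene that the rule selects is not reported here.

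Alternatives were quantile normalization, centring on array medians, other filters and a floor at 4, the mean of all probe sets of a gene, a trended and robust prior, array weights, the replicate number as a block, other sets of samples in the fit and leaving out each array in turn. Promoters of 250 bases before to 50 after each start were searched for motifs in the RefSeq windows. Replicates were compared by correlation, and no pair of the 9 arrays held identical values.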

Additional observations from a re-analysis of the deposited data

Results flagged for a closer look

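Of 180 genes and 40 list means examined, 25 genes and 6 lists had 1 of the 4 MMTV-Wnt tumors far from the other three, and 25 genes and 1 list had 1 of the 5 glands far from the rest. The measure is the gap of an extreme value to its neighbour, divided by the range of the group. The cutoff would mark about 1 in 20 groups of normally distributed values. That rate does not hold here, since most genes were chosen by their values in these arrays and some lie at the floor. Genes of 1 array are not independent either. Values are log2 GC-RMA levels, and no cause was tested.

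MMTV-Wnt 1 was low for Fzd4 (4.80) and high for Lrp5 (4.63), for the fat genes Cidec (4.67) and Pck1 (5.57), for the globin Hbb-b2 (4.64) and for the mean of Wnt secretion and receptor genes (7.83). MMTV-Wnt 2 was high for Bhlha15 (10.25), Pglyrp1 (11.66), Top2a (11.45) and the salivary list mean (8.88), and low for Porcn (5.09).

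MMTV-Wnt 3 was low for Krt5 (2.99), Wif1 (2.85), Tnfrsf19 (4.82), Tle3 (9.36) and Col4a1 (12.40). It was also low for the means of stem and progenitor genes (5.85) and junction genes (4.85), and high for Cdkn2a (8.18), Bnip3 (11.64) and the mean of neutrophil and mast cell genes (7.84). MMTV-Wnt 4 was high for the milk genes Csn2 (7.82), Csn1s1 (8.0), Csn1s2a (4.70) and Thrsp (8.35), the muscle genes Atp2a1 (7.67), Tnnc2 (9.88) and Tnnt3 (9.01) with their list mean (7.32), and for Adipoq (5.18) and Rspo1 (7.37).

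Among the glands, FVB pregnant 1 was high for Bmp7 (2.50), Ror2 (3.67) and Scgb3a1 (2.87), and low for Bcl11b (2.15), Fcgr3 (4.27) and the mean of Wnt secretion and receptor genes (5.44). FVB pregnant 2 was low for Tnnc2 (5.78), Tnnt3 (5.71), Mmp14 (7.34), Gadd45a (3.23) and Dlx3 (2.41). FVB pregnant 3 was high for Cdkn2b (5.88) and Nkd1 (4.21) and low for Top2a (4.91) and Kif20a (2.47). FVB pregnant 4 was high for Adamts5 (11.91), Ephb3 (6.26), Wfdc2 (5.88) and Ly6d (2.47), and low for Rspo1 (2.20), Tnfsf11 (2.80), Mcm5 (2.67) and Itgb1 (9.23). FVB pregnant 5 was high for Thbs1 (7.07) and Emp2 (6.07) and low for Stra6 (2.07). Values such as those of Bmp7, Bcl11b, Dlx3, Ly6d and Stra6 lie near the floor, where a gap of this kind spans little signal.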

How the results depend on the processing

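Counts of genes at 2-fold or more stayed within 1.5 times their value under the alternatives tried, with 1 exception. Leaving out single arrays gave 968 to 1177 higher and 973 to 1166 lower genes against gland, and 235 to 334 higher and 216 to 562 lower genes against the other FVB tumors, the 216 without MMTV-Wnt 1 being the exception. A fit of the 9 arrays alone gave 910 and 771 against gland, and array weights gave 1441 and 1149. Against other tumors the 29 FVB tumor arrays alone gave 416 and 525, and the mean of all 7 other models gave 208 and 274.

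The differences of Krt5 and Cdkn2a, neither of them called, changed sign. Krt5 against gland ran from -0.08 without MMTV-Wnt 1 to 3.35 without MMTV-Wnt 3. Cdkn2a against other tumors was 0.14 and became -0.74 with array weights, -0.42 against all 7 other models and -1.29 without MMTV-Wnt 3, and reached 0.65 without MMTV-Wnt 1. The cause was not tested.

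Of the 165 named genes called against gland, 41 were no longer called in the fit of the 9 arrays. That fit takes the spread from fewer samples and from the MMTV-Wnt tumors and glands alone. Mean correlations were 0.846 among MMTV-Wnt tumors, 0.936 among glands and 0.887 to 0.979 within the other FVB models. Which of these moved the calls was not tested. Among the 41 were Axin2 (adjusted p = 0.0503), Sostdc1, Notum, Nkd1, Tle3, Fzd1, Ror2, Rspo1, Tnfrsf19, Ccn4, Csnk1e, Krt7, Krt17, Jag2 and Myh11. Krt18 and Myc gained calls in that fit (adjusted p = 0.0233 and 0.0123). Raising values under 4 to 4 ended 15 calls, among them Nkd1, Lrp5, Ccn4, Bcl11b and Krt17. Array weights ended 9, centring 7, the mean of all probe sets 6, no filter 4 and quantile normalization 1 (Ptch1). Leaving out single arrays ended 17 to 36. Of 59 called against other tumors, 22 were lost without MMTV-Wnt 1 and 12 with all 7 other models. Of other probe sets of the named genes, 66 were called the same way as the one used, 18 were not called and 17 belonged to genes not called with the one used. Of these 17, probe sets of Elf5, Wnt5a, Apcdd1 and Gja1 were called (adjusted p = 0.000668, 0.0428, 0.0271 and 0.0172).

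Deviations of same-numbered tumors and glands correlated at 0.047, 0.093, 0.109 and 0.050. Tumors and glands with different numbers were not compared, so these values cannot show whether the replicate numbers pair the samples. With the replicate number as a block, counts were 1125 and 1090 against gland and 277 and 374 against other tumors. Calls against gland were shared for 2434 genes, with 157 only without the block and 82 only with it. Values at the floor and 4 tumors, of which MMTV-Wnt 3 differed from the rest, limit what can be detected.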
